A study of Mus musculus with 44 samples.

Results

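The comparison described here set the intestine of mice with T cell transfer colitis against that of non-inflamed recipients, all given vehicle. Its 11 RNA-seq libraries, 6 inflamed and 5 non-inflamed, were taken by their labels and replicate names from 44 libraries of the whole series, 23 of which belong to the transfer model. All recipients were C57BL/6 mice null for Rag1, so they had no T or B cells of their own. Inflamed mice had received 400000 naive T cells into the peritoneal cavity and developed colitis within 8 to 12 weeks, whereas non-inflamed mice had received 200000 bulk T cells. The groups therefore differ in the kind and number of cells transferred as well as in disease. Vehicle was methylcellulose with Tween20 in PBS, given again 16 h after the first dose, and tissue was taken 90 min after the second dose. The remaining 12 libraries of the transfer model came from mice dosed with the MK2 inhibitor ATI-450 at 3 mg/kg, and entered the fit to share its estimate of spread and of batch. Distal colon and ileum were both frozen per the protocol, and the tissue label says only intestine. The labels do not state in so many words that each library is a separate animal, so p-values measure the spread between these libraries. Age and sex are not among the labels used here.

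In this model naive CD4+ T cells expand in a host without lymphocytes, respond to the gut flora and become Th1 and Th17 effector cells, because too few regulatory T cells are present to restrain them. Their cytokines, interferon gamma and interleukin-17 among them, activate macrophages and the epithelium, which in turn release chemokines that draw neutrophils and monocytes from the blood. Colonic crypts lengthen and lose mature absorptive and goblet cells. Bulk T cells carry regulatory cells with them, and mice that receive them usually stay free of colitis.

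Levels are given as counts per M counts of the library (CPM, M standing for 10 to the power of 6) after TMM scaling of library sizes. They are not divided by gene length and are compared within a gene only. Values of the inflamed group are given as lowest, highest and median, and those of the non-inflamed group in the order of its replicates 1, 2, 4, 6 and 7. Changes are log2 fold changes, inflamed over non-inflamed and adjusted for batch, ± their standard error (n = 6 and 5), with edgeR's quasi-likelihood test and Benjamini-Hochberg adjustment over all genes tested. A list's median without a library is given where it differed by over 1.5 times and by at least 0.3. A gene is said to have risen or fallen when its adjusted p was under 0.05. In whole tissue, fewer cells of a type and less RNA per cell cannot be told apart.

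Some libraries stood apart. Inflamed replicate 3 read 0.0767 CPM of Hoxb13, a transcription factor of the distal colon, against 111 to 263 CPM in the other inflamed and 266 to 613 CPM in the non-inflamed libraries. Its summed small intestinal enterocyte markers came to 60380 CPM, against 259 to 2658 CPM in the other inflamed and 698 to 1118 CPM in the non-inflamed libraries. These values go against an origin in the distal colon for that library, whose region the labels do not give, and results are given with and without it. Inflamed replicate 1 held 38201 CPM of summed pancreatic acinar transcripts, against 16.7 to 543 CPM in the other inflamed and 148 to 2154 CPM in the non-inflamed libraries. Summed squamous keratinocyte markers reached 113, 409 and 333 CPM in inflamed replicates 1, 2 and 6 and 438 CPM in non-inflamed replicate 7, against at most 4.93 CPM in the others. Non-inflamed replicate 7 also lay between the groups for many inflammatory transcripts, with 97.6 CPM of summed T cell markers against 7.54 to 30.5 CPM in the other non-inflamed libraries. Library totals ran from 5.95 to 22.3 M counts, and the lowest was inflamed replicate 1, the 1 vehicle library of batch 3. Mitochondrial transcripts made up 1.09 to 2.26% of counts in inflamed and 2.65 to 7.87% in non-inflamed libraries, without overlap. The part of these differences in the results was not tested except where values without a library are given.

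Inflammation was accompanied by a broad change in the intestinal transcriptome. Of 15317 genes tested, 1210 rose (7.9%) and 962 fell (6.28%), 14.2% in all, and no list was tested against these shares. At least 2-fold changes were seen in 918 and 634 of them. Among all genes tested, every inflamed library lay above every non-inflamed one for 525 genes (3.43%) and below for 490 (3.2%). The median log2 fold change of all genes was 0.05. Without inflamed replicate 3, 1586 genes rose (10.4%) and 1565 fell (10.2%) of 15293, or 20.6% in all. Both fits shared 2067 calls, all in the same direction, while 105 calls were made only with that library and 1084 only without it. Without non-inflamed replicate 7, 1516 rose (9.78%) and 1180 fell (7.62%) of 15494, or 17.4% in all. Without non-inflamed replicate 6 the total was 685, with 497 higher and 188 lower.

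**Figure D1:**
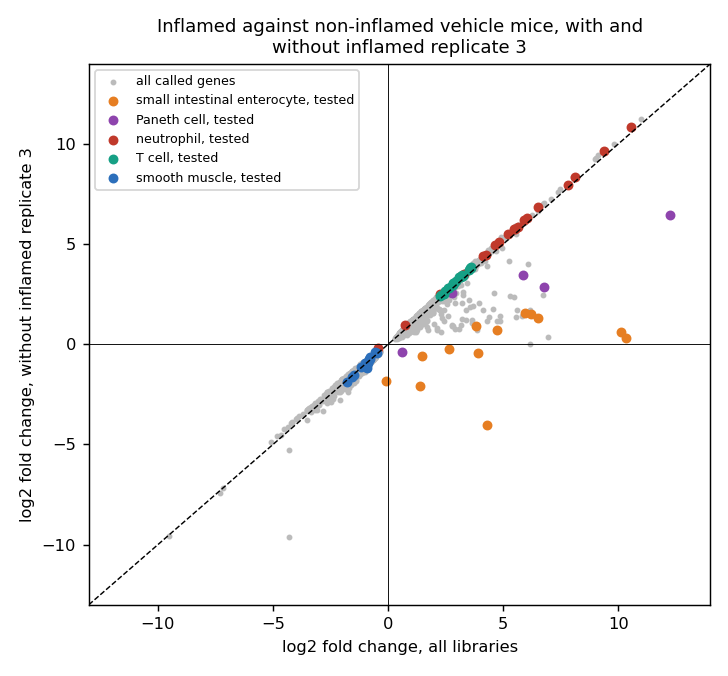
Log2 fold change, inflamed over non-inflamed vehicle, with all libraries on the x axis and without inflamed replicate 3 on the y axis. Shown are the genes called with all libraries and the tested members of the small intestinal enterocyte, Paneth cell, neutrophil, T cell and smooth muscle lists. Most of the genes shown lie near the diagonal, and all 2067 genes called in both fits kept their direction. Small intestinal genes such as Apoa1 and Sis drop towards 0 on the y axis.

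Batch bears on how these counts can be read. Inflamed vehicle libraries came from batch 3 (replicate 1) and batch 4 (replicates 2 to 6), and non-inflamed ones from batch 1 (replicates 1, 2 and 4) and batch 4 (replicates 6 and 7), so batch 4 alone holds both groups. With the 2 vehicle groups fitted alone and batch kept as a term, edgeR called 0 genes, with 1615 at an unadjusted p under 0.05. Within batch 4, 5 inflamed against 2 non-inflamed libraries, it also called 0, with 1321 at an unadjusted p under 0.05. The other batches are linked to the comparison through the inhibitor libraries. Genes described in full below are also given within batch 4, without a test, where they passed the count filter there. Those 7 libraries are among the 11 on which the genes were called, so their values are not independent of the calls.

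**Figure D2:**
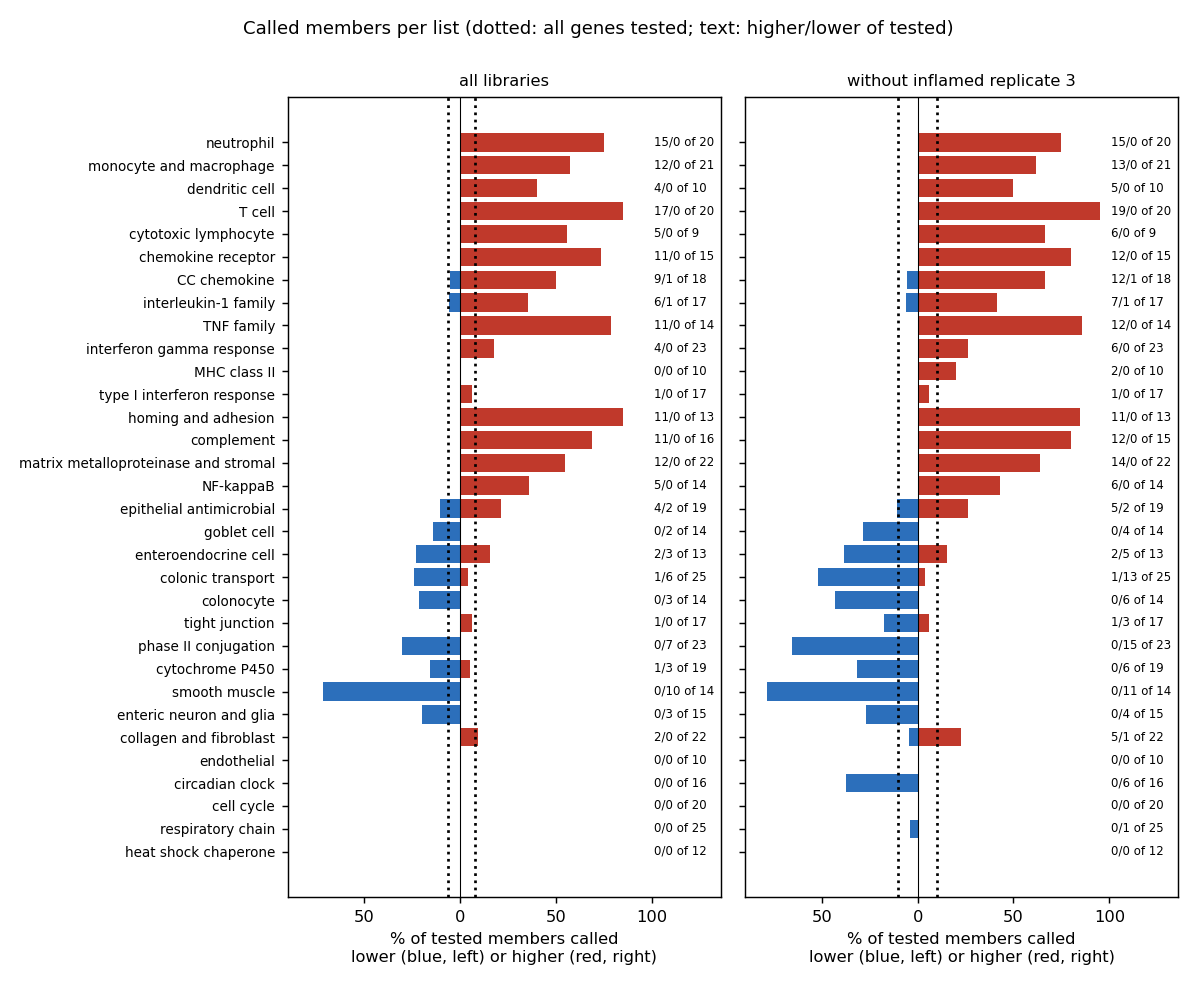
Percent of the tested members of each gene list that rose or fell in inflamed vehicle libraries, with all libraries and without inflamed replicate 3. Neutrophil, T cell and homing lists have most of their members higher, smooth muscle has most of its members lower, and dotted lines mark the share of all genes tested.

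Neutrophil transcripts had the highest median change of the immune lists: of 20 tested neutrophil genes 15 rose, 0 fell and 5 did not pass (median log2 fold change 5.33), against 15 higher and 0 lower without inflamed replicate 3. With the 3 members that read 0 in every non-inflamed library set at their bound, the median was again 5.33. Stfa2l1, a stefin-type inhibitor of cysteine proteases, had no counts in any non-inflamed library and 3.31 ± 5.21 CPM (SD) in inflamed ones, at least 98.6-fold higher against a floor of 3 counts over the group (36.9-fold without inflamed replicate 6, the highest). Mmp8, the neutrophil collagenase, read 0.767 to 19.3 CPM (median 3.18) in inflamed and 0, 0.0527, 0, 0 and 0.0514 CPM in non-inflamed libraries. Mmp8 rose with a log2 fold change of 7.81 ± 1.13, adjusted p = 0.000215 (7.95 without inflamed replicate 3, 7.39 within batch 4), and the groups did not overlap. S100a8, a subunit of calprotectin, read 7.9 to 1033 CPM (median 287) in inflamed and 0, 0.369, 1.8, 0.0492 and 30.3 CPM in non-inflamed libraries. S100a8 rose with a log2 fold change of 5.21 ± 1.72, adjusted p = 0.0489 (5.48 without inflamed replicate 3, 4.49 within batch 4), and inflamed replicates 2 and 3 overlapped the non-inflamed range, whose top was replicate 7. Its partner S100a9 read 7.37 to 608 CPM (median 151) in inflamed and 0, 0.105, 0.466, 0.0985 and 15.3 CPM in non-inflamed libraries. S100a9 rose with a log2 fold change of 5.53 ± 1.60, adjusted p = 0.0261 (5.77 without inflamed replicate 3, 4.77 within batch 4), and inflamed replicate 3 lay at or below non-inflamed replicate 7, the highest of its group. Also higher were Clec4e, a receptor for mycobacterial glycolipid (0.46 to 63.6 against 0 to 0.977 CPM, log2 fold change 6.51 ± 1.28, adjusted p = 0.00356), the formyl peptide receptor Fpr1 (0.307 to 15.7 against 0.0492 to 0.669 CPM, log2 fold change 4.83 ± 0.91, adjusted p = 0.00268) and Cxcr2, the receptor through which neutrophils follow CXC chemokines (1.38 to 19.6 against 0.739 to 1.86 CPM, log2 fold change 3.17 ± 0.66, adjusted p = 0.00456). Ngp, a granule protein of immature neutrophils, read 0 in every non-inflamed library but did not pass (log2 fold change 10.57 ± 3.42, adjusted p = 0.0645). Ly6g, a defining surface marker of neutrophils, and Cd177, chosen after their values were seen, did not pass. Ly6g read 1.07 to 391.9 CPM (median 149) in inflamed and 289, 417, 763, 82.8 and 265 CPM in non-inflamed libraries (log2 fold change -0.42 ± 0.77, adjusted p = 0.737, -0.17 without inflamed replicate 3, -0.16 within batch 4). Cd177 read 23 to 829 CPM (median 506) in inflamed and 75.4, 514, 305, 104 and 475 CPM in non-inflamed libraries (log2 fold change 0.74 ± 0.66, adjusted p = 0.46, 0.98 without inflamed replicate 3, 0.56 within batch 4). S100a8 did not pass without inflamed replicates 1, 4, 5 or 6 or non-inflamed replicates 1, 2, 4 or 6 (adjusted p = 0.0595 to 0.137). S100a9 lost the call without inflamed replicate 6 or non-inflamed replicate 6 (adjusted p = 0.0505 and 0.0908). Ngp passed without inflamed replicates 2 or 6 (adjusted p = 0.0364 and 0.0231). For S100a8 and S100a9 the log2 fold change was 10.17 and 10.29 without non-inflamed replicate 7.

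**Figure D3:**
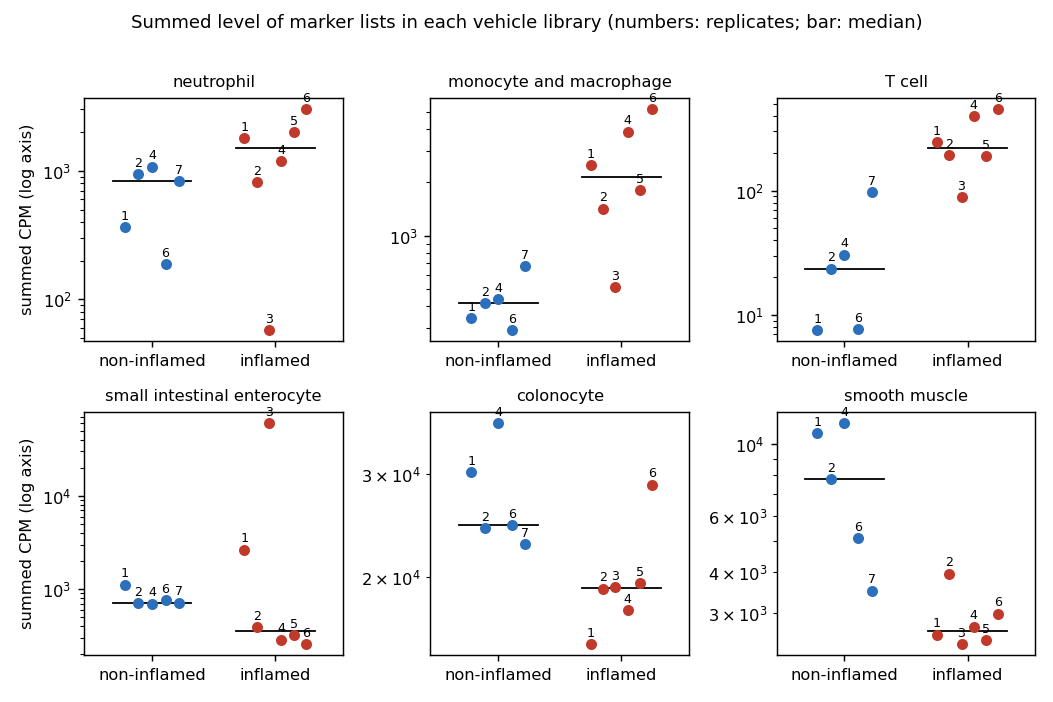
Summed CPM of 6 marker lists in each of the 11 vehicle libraries, 1 point per library on a log axis, with bars at the group medians. In the neutrophil sum, Cd177 and Ly6g hold most of the non-inflamed level, S100a8 and S100a9 also add to the inflamed level, and the groups overlap. The T cell and monocyte and macrophage sums are higher in most inflamed libraries, and smooth muscle is lower in most of them. Inflamed replicate 3 stands alone with 60380 CPM of small intestinal enterocyte markers.

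The chemokine axis that draws neutrophils rose in part: of 7 tested genes of neutrophil-attracting chemokines and their receptors 4 rose, 0 fell and 3 did not pass (median log2 fold change 3.23), against 4 higher and 0 lower without inflamed replicate 3. The 4 that rose were the chemokine genes Cxcl1, Cxcl2 and Cxcl3 and the receptor gene Cxcr2. Cxcl1, Cxcl2 and Cxcl3 lie beside each other on chromosome 5 and are classical targets of the transcription factor NF-kappaB. Their promoters are shown because all 3 hold the NF-kappaB motif GGANTTTCC, printed in capitals, on the plus strand at 70, 96 and 72 bases before the start of the gene. The windows cover 250 bases before to 50 bases after each RefSeq gene start on GRCm38.p6, all on the plus strand. They are chr5:90890995-90891294 for Cxcl1, chr5:90903649-90903948 for Cxcl2 and chr5:90785851-90786150 for Cxcl3.
Cxcl1: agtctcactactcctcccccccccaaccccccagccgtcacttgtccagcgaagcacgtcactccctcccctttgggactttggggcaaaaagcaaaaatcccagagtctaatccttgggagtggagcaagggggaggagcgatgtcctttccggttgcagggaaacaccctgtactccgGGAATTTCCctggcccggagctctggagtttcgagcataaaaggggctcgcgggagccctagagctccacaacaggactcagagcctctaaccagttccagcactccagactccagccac
Cxcl2: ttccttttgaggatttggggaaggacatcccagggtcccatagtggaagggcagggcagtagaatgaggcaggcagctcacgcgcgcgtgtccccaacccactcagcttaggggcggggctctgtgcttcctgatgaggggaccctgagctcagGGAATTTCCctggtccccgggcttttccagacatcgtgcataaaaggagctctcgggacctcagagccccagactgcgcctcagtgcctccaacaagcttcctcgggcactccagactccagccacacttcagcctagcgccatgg
Cxcl3: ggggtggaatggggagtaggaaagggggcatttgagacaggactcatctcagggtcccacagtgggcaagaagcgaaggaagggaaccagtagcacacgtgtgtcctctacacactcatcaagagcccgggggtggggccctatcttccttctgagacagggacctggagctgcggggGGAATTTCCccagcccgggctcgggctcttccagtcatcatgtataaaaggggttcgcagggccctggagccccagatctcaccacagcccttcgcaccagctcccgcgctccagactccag
Searched on both strands, the motif was present in 412 of 32851 promoter windows (1.25%), and in 3 of the 7 windows found for the 9 genes of this list. A match is a description of letters and was not tested for binding.

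Cxcl1 read 0.0767 to 13.4 CPM (median 9.71) in inflamed and 0, 0.211, 2.46, 0.0985 and 1.44 CPM in non-inflamed libraries. Cxcl1 rose with a log2 fold change of 3.46 ± 1.08, adjusted p = 0.0371 (3.77 without inflamed replicate 3, 3.10 within batch 4), and inflamed replicates 2 and 3 overlapped the non-inflamed range, whose top was replicate 4. Cxcl2, of the same cluster, read 0 to 24.4 CPM (median 8.82) in inflamed and 0, 0, 0.0666, 0.0985 and 1.34 CPM in non-inflamed libraries. Cxcl2 rose with a log2 fold change of 4.66 ± 1.24, adjusted p = 0.0162 (5.03 without inflamed replicate 3, 3.54 within batch 4), and inflamed replicates 2 and 3 lay at or below non-inflamed replicate 7, the highest of its group. Cxcl3 read 0.0767 to 9.43 CPM (median 5.45) in inflamed and 0, 0.0527, 0.333, 0 and 0.617 CPM in non-inflamed libraries. Cxcl3 rose with a log2 fold change of 4.35 ± 1.32, adjusted p = 0.0323 (4.73 without inflamed replicate 3, 3.71 within batch 4), and inflamed replicate 3 overlapped the non-inflamed range, whose top was replicate 7. In all 3 genes inflamed replicate 3 was the lowest of its group, near the non-inflamed libraries. Cxcl5, another attractant of the same receptor, read 0.614 to 208 CPM (median 143) in inflamed and 0.959, 1.32, 9.39, 0.886 and 27.3 CPM in non-inflamed libraries and did not pass (log2 fold change 3.23 ± 1.46, adjusted p = 0.141, 3.50 without inflamed replicate 3, 2.82 within batch 4). Cxcl1 did not pass without inflamed replicates 1, 4, 5 or 6 or non-inflamed replicates 1, 2 or 6 (adjusted p = 0.0507 to 0.135). Cxcl2 lost the call without non-inflamed replicate 6 (adjusted p = 0.0754). Cxcl3 missed the threshold without inflamed replicates 1 or 6 or non-inflamed replicates 1, 2 or 6 (adjusted p = 0.0514 to 0.127). For Cxcl2 the log2 fold change was 7.71 without non-inflamed replicate 7. Among the neutrophil-attracting chemokine genes 1 rose without non-inflamed replicate 6 and 2 rose without inflamed replicates 1 or 6 or non-inflamed replicates 1 or 2, in place of 4.

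Interleukin-1 is released by activated myeloid and dying epithelial cells and induces these chemokines. Of 17 tested interleukin-1 family genes 6 rose, 1 fell and 10 did not pass (median log2 fold change 0.99, and 1.554 without inflamed replicate 2 and 0.57 and 3.26 without non-inflamed replicates 6 and 7), against 7 higher and 1 lower without inflamed replicate 3. Il1b read 1.76 to 72.9 CPM (median 32.7) in inflamed and 0.128, 1.11, 2.4, 1.03 and 4.32 CPM in non-inflamed libraries. Il1b rose with a log2 fold change of 3.75 ± 0.94, adjusted p = 0.0127 (4.03 without inflamed replicate 3, 3.42 within batch 4), and inflamed replicate 3 lay at or below non-inflamed replicate 7, the highest of its group. Il1a rose further (1.76 to 11.5 against 0 to 0.514 CPM, log2 fold change 4.57 ± 0.79, adjusted p = 0.00195), and so did Il1r2, the decoy receptor carried by neutrophils (3.61 to 38.7 against 0.246 to 1.44 CPM, log2 fold change 4.25 ± 0.78, adjusted p = 0.00281) and Il1f9, an interleukin-36 cytokine (1.61 to 14.9 against 0.128 to 1.34 CPM, log2 fold change 3.54 ± 0.69, adjusted p = 0.00356). Il18r1 and Il18rap, the chains of the interleukin-18 receptor of Th1 cells, rose together (7.14 to 25 against 0.511 to 5.14 CPM, log2 fold change 2.86 ± 0.54, adjusted p = 0.00305, and 3.38 to 17.5 against 0.128 to 3.09 CPM, log2 fold change 3.22 ± 0.66, adjusted p = 0.00446). Il1rap, the shared accessory receptor chain, fell (4.53 to 9.43 against 8.59 to 14 CPM, log2 fold change -0.89 ± 0.21, adjusted p = 0.009002). Il1b and Il1rap did not pass without non-inflamed replicate 6 (adjusted p = 0.0632 and 0.0921). For Il18r1 and Il18rap the log2 fold change was 4.38 and 5.22 without non-inflamed replicate 7.

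**Figure D4:**
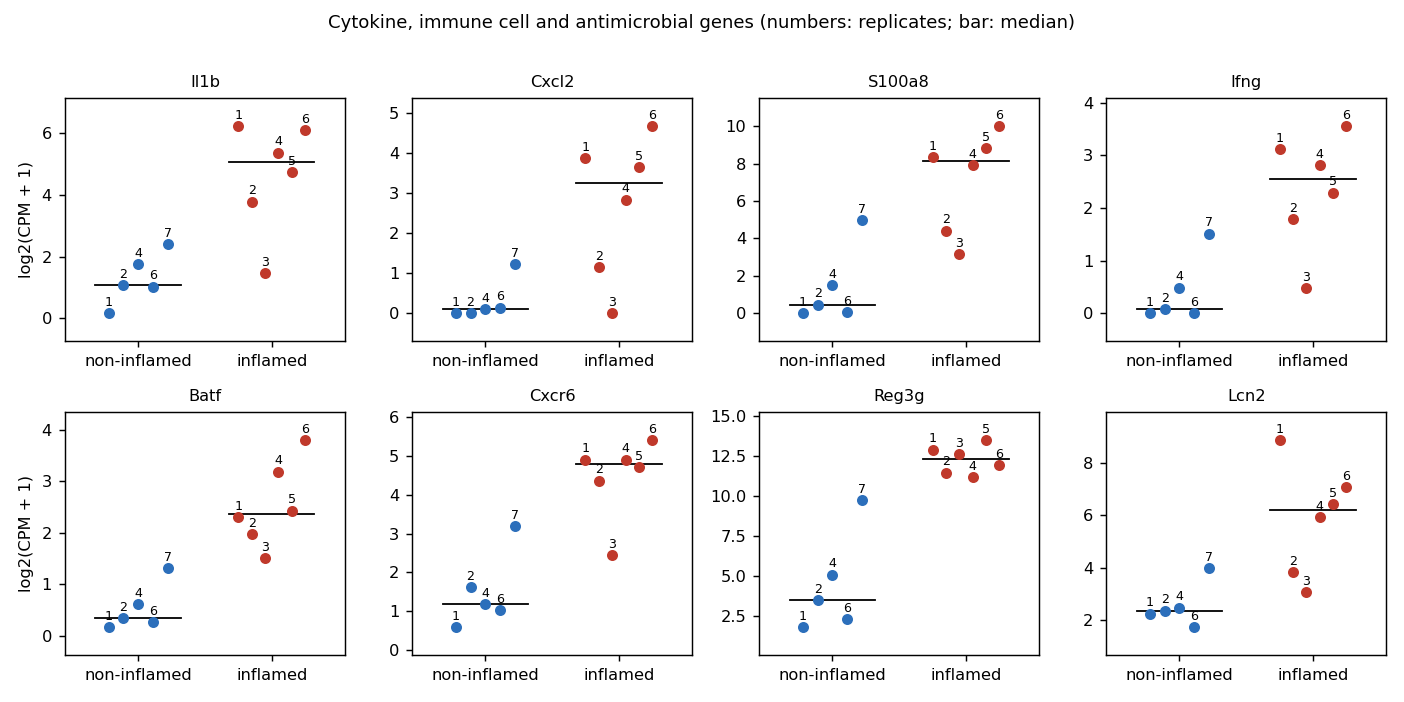
Log2(CPM + 1) of Il1b, Cxcl2, S100a8, Ifng, Batf, Cxcr6, Reg3g and Lcn2 in the 11 vehicle libraries, 1 point per library with its replicate number, and bars at the group medians. Non-inflamed replicate 7 is the highest of its group for Reg3g, with 847 CPM, and inflamed replicate 3 is among the lowest of its group for Il1b, Cxcl2 and Lcn2.

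Monocyte and macrophage genes rose in part: of 21 tested 12 rose, 0 fell and 9 did not pass (median log2 fold change 2.003), against 13 higher and 0 lower without inflamed replicate 3. Chil3, a chitinase-like protein of alternatively activated macrophages and neutrophils, read 3.68 to 533 CPM (median 33.3) in inflamed and 0, 0.316, 0.3996, 0.0985 and 1.03 CPM in non-inflamed libraries. Chil3 rose with a log2 fold change of 8.03 ± 1.54, adjusted p = 0.00332 (8.35 without inflamed replicate 3, 7.71 within batch 4), and the groups did not overlap. Ly6c2, a surface marker of inflammatory monocytes, read 0.384 to 106 CPM (median 12.9) in inflamed and 0.128, 0.632, 0.932, 0.0492 and 2.42 CPM in non-inflamed libraries. Ly6c2 rose with a log2 fold change of 4.58 ± 1.22, adjusted p = 0.0167 (4.84 without inflamed replicate 3, 4.63 within batch 4), and inflamed replicate 3 lay at or below non-inflamed replicate 7, the highest of its group. The integrin chain Itgam (26.8 to 74.8 against 3.2 to 11.5 CPM, log2 fold change 2.66 ± 0.33, adjusted p = 0.000222) and the receptor Csf1r for colony-stimulating factor (56 to 213 against 14.2 to 47.3 CPM, log2 fold change 1.90 ± 0.32, adjusted p = 0.00219) rose without overlap of the groups. Of 16 tested complement genes 11 rose, 0 fell and 5 did not pass (median log2 fold change 1.59), against 12 higher and 0 lower without inflamed replicate 3. The leading members were properdin, Cfp (6.91 to 63.5 against 3.35 to 8.69 CPM, log2 fold change 2.41 ± 0.47, adjusted p = 0.00356), and C1qb, a chain of the recognition subunit made by macrophages (38.7 to 284 against 15.4 to 45.6 CPM, log2 fold change 2.41 ± 0.46, adjusted p = 0.00327). Ly6c2 did not pass without non-inflamed replicate 6 (adjusted p = 0.0791). Among the complement genes 6 rose without non-inflamed replicate 6, in place of 11.

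The phagocyte oxidase makes superoxide against engulfed microbes. Of 14 tested genes of oxidases and nitric oxide synthesis 4 rose, 0 fell and 10 did not pass (median log2 fold change 0.96, and 1.83 without non-inflamed replicate 7), against 5 higher and 0 lower without inflamed replicate 3. Cybb, its catalytic subunit, read 18 to 266 CPM (median 114) in inflamed and 6.9, 10.3, 7.13, 7.29 and 30.9 CPM in non-inflamed libraries. Cybb rose with a log2 fold change of 2.90 ± 0.60, adjusted p = 0.00464 (3.12 without inflamed replicate 3, 2.63 within batch 4), and inflamed replicate 3 overlapped the non-inflamed range, whose top was replicate 7. Ncf4, a cytosolic subunit, rose as well (4.22 to 38.3 against 0.831 to 5.81 CPM, log2 fold change 2.77 ± 0.63, adjusted p = 0.00774). Nos2, inducible nitric oxide synthase, read 122 to 685 CPM (median 321) in inflamed and 5.56, 18.2, 25.5, 6.25 and 217 CPM in non-inflamed libraries and did not pass (log2 fold change 2.12 ± 1.04, adjusted p = 0.174, 2.22 without inflamed replicate 3, 1.44 within batch 4). Non-inflamed replicate 7, at 217 CPM, was the 1 library of its group within the inflamed range. Of 16 tested Toll-like and NOD receptor genes 6 rose, 0 fell and 10 did not pass (median log2 fold change 0.73), against 8 higher and 0 lower without inflamed replicate 3. Those that rose included Tlr13, which in mice senses bacterial ribosomal RNA (4.76 to 22.1 against 1.13 to 5.45 CPM, log2 fold change 2.04 ± 0.40, adjusted p = 0.00359), and Tlr6, which pairs with Tlr2 to bind lipopeptides (0.844 to 6.69 against 0.3996 to 1.53 CPM, log2 fold change 1.96 ± 0.41, adjusted p = 0.00483). Nos2 passed without non-inflamed replicate 7 (adjusted p = 0.0195). Among the oxidase genes 7 rose without non-inflamed replicate 7, in place of 4. Among the Toll-like and NOD receptor genes 2 rose without non-inflamed replicate 6, in place of 6.

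Smaller myeloid groups moved in part. Of 8 tested mast cell and eosinophil genes 6 rose, 0 fell and 2 did not pass (median log2 fold change 2.48), against 6 higher and 0 lower without inflamed replicate 3. Hdc, which makes histamine, read 1.76 to 18.4 CPM (median 8.66) in inflamed and 0.447, 0.316, 0.3996, 0.246 and 1.49 CPM in non-inflamed libraries. Hdc rose with a log2 fold change of 3.64 ± 0.78, adjusted p = 0.00541 (3.88 without inflamed replicate 3, 3.01 within batch 4), and the groups did not overlap. The mucosal mast cell protease Mcpt2 rose (0.767 to 12 against 0.0639 to 1.44 CPM, log2 fold change 3.20 ± 0.88, adjusted p = 0.0189). Gata2 and Cma1 did not pass (log2 fold change -0.98 and -0.23), and 8 of 15 listed genes were tested. Of 10 tested dendritic cell genes 4 rose, 0 fell and 6 did not pass (median log2 fold change 1.13), against 5 higher and 0 lower without inflamed replicate 3. Those that rose included Ccr7, the receptor that guides dendritic cells and naive T cells to lymph nodes (0.997 to 10.7 against 0.447 to 1.03 CPM, log2 fold change 2.91 ± 0.55, adjusted p = 0.00308), and Fscn1, an actin-bundling protein of mature dendritic cells (1.46 to 31.9 against 2.17 to 4.21 CPM, log2 fold change 1.86 ± 0.47, adjusted p = 0.0131). Siglech and Cd209a did not pass (log2 fold change -0.94 and -0.35). Mcpt2 and Fscn1 did not pass without non-inflamed replicate 6 (adjusted p = 0.0921 and 0.0578). Without non-inflamed replicate 6, 1 mast cell and eosinophil gene and 1 dendritic cell gene rose, in place of 6 and 4. Without inflamed replicate 4, 2 dendritic cell genes rose.

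T cell transcripts rose across nearly the whole list: of 20 tested T cell genes 17 rose, 0 fell and 3 did not pass (median log2 fold change 2.85, and 5.05 without non-inflamed replicate 7), against 19 higher and 0 lower without inflamed replicate 3. Recipients null for Rag1 cannot make T cells of their own. Cd3d, which transmits signals from the T cell receptor, read 1.99 to 27.1 CPM (median 9.05) in inflamed and 0.128, 1.21, 1.53, 0.0492 and 3.03 CPM in non-inflamed libraries. Cd3d rose with a log2 fold change of 3.60 ± 0.89, adjusted p = 0.0116 (3.87 without inflamed replicate 3, 2.94 within batch 4), and inflamed replicate 3 overlapped the non-inflamed range, whose top was replicate 7. Cd3e, its partner in that complex, read 2.69 to 13.4 CPM (median 7.44) in inflamed and 0, 0.421, 1.27, 0.0492 and 3.96 CPM in non-inflamed libraries. Cd3e rose with a log2 fold change of 2.81 ± 0.84, adjusted p = 0.0306 (3.02 without inflamed replicate 3, 2.02 within batch 4), and inflamed replicate 3 lay at or below non-inflamed replicate 7, the highest of its group. Cd2, an adhesion receptor of T cells, rose (2.15 to 22.1 against 0.0985 to 2.31 CPM, log2 fold change 3.58 ± 0.69, adjusted p = 0.00331). Foxp3, the transcription factor of regulatory T cells, was below the count filter and read 0.0878 to 0.307 CPM in inflamed and at most 0.257 CPM in non-inflamed libraries. Of 6 tested B cell and plasma cell genes 2 rose, 0 fell and 4 did not pass (median log2 fold change 0.42, and -0.05 and 1.41 without non-inflamed replicates 6 and 7), against 2 higher and 0 lower without inflamed replicate 3. The 2 that rose, Cd22, an inhibitory B cell receptor (1.76 to 4.52 against 0.0985 to 1.8 CPM, log2 fold change 1.79 ± 0.47, adjusted p = 0.016), and Cd79b, chosen here after its values were seen (0.439 to 2.07 against 0.0492 to 0.669 CPM, log2 fold change 1.95 ± 0.55, adjusted p = 0.0203), are also read in few counts. Cd3e did not pass without inflamed replicates 1, 4 or 6 or non-inflamed replicates 2 or 6 (adjusted p = 0.0518 to 0.106). Cd22 and Cd79b lost their calls without non-inflamed replicate 6 (adjusted p = 0.0781 and 0.12). For Cd3d, Cd3e and Cd22 the log2 fold change was 5.42, 5.40 and 2.96 without non-inflamed replicate 7. Among the T cell genes 9 rose without non-inflamed replicate 6, in place of 17.

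Transcription factors that set the fate of T helper cells moved in part: of 11 tested T helper fate genes 6 rose, 0 fell and 5 did not pass (median log2 fold change 1.38), against 7 higher and 1 lower without inflamed replicate 3. Batf, which Th17 cells require, read 1.84 to 12.9 CPM (median 4.17) in inflamed and 0.128, 0.263, 0.533, 0.197 and 1.49 CPM in non-inflamed libraries. Batf rose with a log2 fold change of 3.48 ± 0.61, adjusted p = 0.00253 (3.70 without inflamed replicate 3, 2.80 within batch 4), and the groups did not overlap. Maf, a factor of Th17 and regulatory cells that other cells also use, read 20.1 to 704 CPM (median 29.7) in inflamed and 20, 18.1, 24.2, 14.4 and 17.6 CPM in non-inflamed libraries. Maf rose with a log2 fold change of 3.06 ± 0.97, adjusted p = 0.0393 (0.77 without inflamed replicate 3, 3.34 within batch 4), and inflamed replicates 2, 5 and 6 lay at or below non-inflamed replicate 4, the highest of its group. Its level in inflamed replicate 3 was 704 CPM. Tbx21, the master factor of Th1 cells, rose too (1.23 to 6.55 against 0 to 2.21 CPM, log2 fold change 2.38 ± 0.79, adjusted p = 0.0473). Of 9 tested cytotoxic lymphocyte genes 5 rose, 0 fell and 4 did not pass (median log2 fold change 2.77, and 5.33 without non-inflamed replicate 7), against 6 higher and 0 lower without inflamed replicate 3. Gzmk, a granzyme of effector lymphocytes, read 1.58 to 7.47 CPM (median 2.12) in inflamed and 0, 0.0527, 0.266, 0 and 0.669 CPM in non-inflamed libraries. Gzmk rose with a log2 fold change of 4.24 ± 0.90, adjusted p = 0.00442 (4.42 without inflamed replicate 3, 3.30 within batch 4), and the groups did not overlap. Gzmc, Gzmd, Gzmf and Gzmg are near-identical granzymes in 1 cluster, between which reads could be split, so their single values are uncertain. Gzmc rose (0.307 to 49.1 against 0.0639 to 1.44 CPM, log2 fold change 4.24 ± 1.14, adjusted p = 0.0179), as did Gzmd (0 to 90.8 against 0 to 0.0514 CPM, log2 fold change 9.03 ± 2.75, adjusted p = 0.0432) and Gzmg (0 to 83.5 against 0 to 0.0514 CPM, log2 fold change 8.99 ± 2.67, adjusted p = 0.039), and inflamed replicate 6 held the most of each. Gzmf read 24.2 ± 50.4 CPM (SD) in inflamed libraries and no counts in the non-inflamed group, at least 722-fold higher against 3 counts over the group (111-fold without inflamed replicate 6, the highest). Maf did not pass without non-inflamed replicates 1, 2, 6 or 7 (adjusted p = 0.0593 to 0.149). Tbx21 lost the call without inflamed replicates 1, 4 or 6 or non-inflamed replicates 1, 2, 4 or 6 (adjusted p = 0.0598 to 0.177). Gzmc and Gzmf missed the threshold without non-inflamed replicate 6 (adjusted p = 0.0872 and 0.0989). Gzmd did not pass without inflamed replicates 1, 4 or 6 or non-inflamed replicates 1, 2, 6 or 7 (adjusted p = 0.0527 to 0.181). Gzmg lost the call without inflamed replicates 1 or 6 or non-inflamed replicates 1, 2, 6 or 7 (adjusted p = 0.0527 to 0.168). For Tbx21 and Gzmk the log2 fold change was 4.61 and 6.49 without non-inflamed replicate 7. For Gzmc the log2 fold change was 2.81 without inflamed replicate 6. Among the T helper fate genes 2 rose without non-inflamed replicate 6 and 3 rose without non-inflamed replicates 1 or 2, in place of 6. Among the cytotoxic genes 3 rose without non-inflamed replicate 6 and 8 rose without non-inflamed replicate 7, in place of 5.

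Receptors and ligands that bring lymphocytes into the gut rose together. Of 15 tested chemokine receptor genes 11 rose, 0 fell and 4 did not pass (median log2 fold change 2.52), against 12 higher and 0 lower without inflamed replicate 3. Cxcr6, a receptor of tissue-resident T cells, read 4.45 to 41.5 CPM (median 27) in inflamed and 0.511, 2.05, 1.27, 1.03 and 8.18 CPM in non-inflamed libraries. Cxcr6 rose with a log2 fold change of 3.13 ± 0.71, adjusted p = 0.00787 (3.35 without inflamed replicate 3, 2.35 within batch 4), and inflamed replicate 3 lay at or below non-inflamed replicate 7, the highest of its group. Cxcr3, the receptor of Th1 cells, rose (3.53 to 12 against 0.192 to 1.9 CPM, log2 fold change 3.27 ± 0.62, adjusted p = 0.00321). Of 13 tested homing and adhesion genes 11 rose, 0 fell and 2 did not pass (median log2 fold change 2.36), against 11 higher and 0 lower without inflamed replicate 3. Madcam1, the addressin on gut venules that binds the integrin of gut-homing T cells, read 2.34 to 12.4 CPM (median 5.45) in inflamed and 0.128, 0.632, 0.3996, 0.345 and 1.44 CPM in non-inflamed libraries. Madcam1 rose with a log2 fold change of 3.25 ± 0.56, adjusted p = 0.00225 (3.35 without inflamed replicate 3, 2.76 within batch 4), and the groups did not overlap. For Cxcr6 the log2 fold change was 4.81 without non-inflamed replicate 7. Among the chemokine receptor and the homing and adhesion genes 6 and 3 rose without non-inflamed replicate 6, each in place of 11.

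Of 18 tested CC chemokine genes 9 rose, 1 fell and 8 did not pass (median log2 fold change 2.20), against 12 higher and 1 lower without inflamed replicate 3. Ccl5, made by activated T cells, read 29.8 to 189.9 CPM (median 56.7) in inflamed and 0.447, 5.37, 7.53, 0.246 and 21.3 CPM in non-inflamed libraries. Ccl5 rose with a log2 fold change of 3.70 ± 1.13, adjusted p = 0.0341 (3.87 without inflamed replicate 3, 3.01 within batch 4), and the groups did not overlap. Ccl25, the chemokine that draws T cells to the small intestine, rose by the largest amount of the list (2.29 to 743 against 2.31 to 4.46 CPM, log2 fold change 5.57 ± 1.49, adjusted p = 0.0176), and its highest value, 743 CPM, was that of inflamed replicate 3. Ccl28, a chemokine of the colonic epithelium, fell (42 to 149.5 against 185 to 207 CPM, log2 fold change -1.10 ± 0.25, adjusted p = 0.00818). Of 11 tested lymphoid tissue genes 6 rose, 1 fell and 4 did not pass (median log2 fold change 2.80), against 6 higher and 0 lower without inflamed replicate 3. Ccl19, which gathers T cells and dendritic cells in lymphoid tissue, rose (0.384 to 12.6 against 0 to 1.33 CPM, log2 fold change 3.38 ± 1.04, adjusted p = 0.0337), with Ltb, lymphotoxin beta, which organises such tissue (4.45 to 44.5 against 0.788 to 5.86 CPM, log2 fold change 3.08 ± 0.64, adjusted p = 0.00467). Ccl5 did not pass without inflamed replicates 1, 4 or 6 or non-inflamed replicates 1, 2, 4 or 6 (adjusted p = 0.0502 to 0.104). Ccl25 lost the call without inflamed replicate 3 or non-inflamed replicate 6 (adjusted p = 0.141 and 0.0768). Ccl19 missed the threshold without inflamed replicates 4 or 6 or non-inflamed replicates 1, 2 or 6 (adjusted p = 0.0504 to 0.137). For Ccl5 the log2 fold change was 6.54 without non-inflamed replicate 7. For Ccl25 the log2 fold change was 1.35 without inflamed replicate 3. Among the CC chemokine genes 3 rose without non-inflamed replicate 6 and 5 rose without inflamed replicate 6, in place of 9.

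Interferon gamma is the main cytokine of Th1 cells. Ifng read 0.384 to 10.8 CPM (median 4.99) in inflamed and 0, 0.0527, 0.3996, 0 and 1.85 CPM in non-inflamed libraries. Ifng rose with a log2 fold change of 3.32 ± 0.94, adjusted p = 0.022 (3.62 without inflamed replicate 3, 2.31 within batch 4), and inflamed replicate 3 overlapped the non-inflamed range, whose top was replicate 7. Many genes are induced by it in macrophages and epithelium. Of 23 tested interferon gamma response genes 4 rose, 0 fell and 19 did not pass (median log2 fold change 1.34, and 2.93 without non-inflamed replicate 7), against 6 higher and 0 lower without inflamed replicate 3. Cxcl11, a ligand of Cxcr3 annotated as a polymorphic pseudogene, read 1.76 to 13 CPM (median 2.55) in inflamed and 0, 0.0527, 0.333, 0 and 1.34 CPM in non-inflamed libraries. Cxcl11 rose with a log2 fold change of 3.43 ± 0.93, adjusted p = 0.0169 (3.59 without inflamed replicate 3, 2.73 within batch 4), and the groups did not overlap. Of 10 tested MHC class II genes 0 rose, 0 fell and 10 did not pass (median log2 fold change 1.47, and 3.34 without non-inflamed replicate 7), against 2 higher and 0 lower without inflamed replicate 3. Without non-inflamed replicate 7, 5 of them rose. Of 17 tested type I interferon response genes 1 rose, 0 fell and 16 did not pass (median log2 fold change 0.81, and -0.04 without inflamed replicate 3), against 1 higher and 0 lower without inflamed replicate 3. Its 1 called member was Usp18, which removes the ubiquitin-like Isg15 (18.9 to 189 against 1.66 to 20.04 CPM, log2 fold change 2.29 ± 0.64, adjusted p = 0.0212). Ifng and Usp18 did not pass without inflamed replicate 1 or non-inflamed replicate 6 (adjusted p = 0.052 to 0.089). Cxcl11 lost the call without non-inflamed replicate 6 (adjusted p = 0.0817). For Ifng and Cxcl11 the log2 fold change was 6.43 and 5.93 without non-inflamed replicate 7. For Usp18 the log2 fold change was 1.52 without inflamed replicate 3. Among the interferon gamma response genes 0 rose without non-inflamed replicate 6, 1 rose without inflamed replicate 1, 2 rose without inflamed replicates 5 or 6 or non-inflamed replicate 1 and 18 rose without non-inflamed replicate 7, in place of 4.

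Of 14 tested TNF family genes 11 rose, 0 fell and 3 did not pass (median log2 fold change 2.23, and 3.55 without non-inflamed replicate 7), against 12 higher and 0 lower without inflamed replicate 3. Tnf itself read 2.38 to 33.1 CPM (median 18.6) in inflamed and 0.192, 1.79, 2.73, 0.837 and 8.18 CPM in non-inflamed libraries and did not pass (log2 fold change 2.53 ± 0.87, adjusted p = 0.0568, 2.78 without inflamed replicate 3, 1.86 within batch 4). Tnfrsf9, a costimulatory receptor of activated T cells, read 1.23 to 16.6 CPM (median 4.69) in inflamed and 0.256, 0.474, 0.3996, 0.148 and 0.926 CPM in non-inflamed libraries. Tnfrsf9 rose with a log2 fold change of 3.96 ± 0.74, adjusted p = 0.00301 (4.18 without inflamed replicate 3, 3.43 within batch 4), and the groups did not overlap. Tnfsf14, the ligand LIGHT, rose (1.07 to 4.86 against 0.0639 to 0.514 CPM, log2 fold change 3.73 ± 0.73, adjusted p = 0.00332). Of 9 tested interleukin-6 family genes 3 rose, 0 fell and 6 did not pass (median log2 fold change 0.69, and 1.36 without non-inflamed replicate 7), against 3 higher and 0 lower without inflamed replicate 3. Il6 itself read 0 in all 11 libraries. Osm, oncostatin M, which acts on stromal cells, read 0.307 to 3.6 CPM (median 1.43) in inflamed and 0, 0.0527, 0.133, 0.0492 and 0.411 CPM in non-inflamed libraries. Osm rose with a log2 fold change of 3.34 ± 0.72, adjusted p = 0.00387 (3.60 without inflamed replicate 3, 2.20 within batch 4), and inflamed replicates 3 and 5 lay at or below non-inflamed replicate 7, the highest of its group. Clcf1 (0.922 to 1.97 against 0.0639 to 0.72 CPM, log2 fold change 2.21 ± 0.48, adjusted p = 0.00566) and Lif (3.76 to 15.1 against 1.41 to 7.56 CPM, log2 fold change 1.27 ± 0.41, adjusted p = 0.0449), both cytokines that signal through the same receptor chain, rose as well. Lif did not pass without inflamed replicates 1, 4, 5 or 6 or non-inflamed replicates 1, 2, 4 or 6 (adjusted p = 0.0659 to 0.182). Tnf passed without inflamed replicates 2 or 3 or non-inflamed replicate 7 (adjusted p = 0.0089 to 0.0455). For Osm and Lif the log2 fold change was 5.03 and 2.005 without non-inflamed replicate 7. Among the TNF family genes 7 rose without non-inflamed replicate 6, in place of 11.

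The cytokines of Th17 cells were read in few counts. Of 11 tested genes of interleukins 17, 22 and 23 and their receptors 3 rose, 0 fell and 8 did not pass (median log2 fold change 0.79, and 1.27, 1.25, 1.26 and 1.83 without non-inflamed replicates 1, 4, 6 and 7), against 3 higher and 1 lower without inflamed replicate 3. Il17a was below the count filter, with 0 to 1.23 CPM in inflamed and 0 to 0.103 CPM in non-inflamed libraries. Il22, which acts on the epithelium, read 0.0767 to 2.92 CPM (median 1.46) in inflamed and 0, 0, 0.866, 0 and 0.0514 CPM in non-inflamed libraries. Il22 rose with a log2 fold change of 3.96 ± 1.23, adjusted p = 0.0305 (4.14 without inflamed replicate 3, 5.27 within batch 4), and inflamed replicates 2 and 3 overlapped the non-inflamed range, whose top was replicate 4. Il12rb1, the receptor chain shared by interleukins 12 and 23, read 0 CPM in all 4 vehicle libraries outside batch 4, inflamed replicate 1 included, and 2.84 to 12.7 CPM in the inflamed and 0.197 and 0.771 CPM in the non-inflamed libraries of batch 4. Il12rb1 rose with a log2 fold change of 4.60 ± 1.03, adjusted p = 0.00596 (4.80 without inflamed replicate 3, 3.95 within batch 4). Il17ra, the interleukin-17 receptor, rose (0.537 to 2.81 against 0.36 to 0.599 CPM, log2 fold change 1.998 ± 0.42, adjusted p = 0.00506). Of 11 tested regulatory and type 2 cytokine genes 5 rose, 1 fell and 5 did not pass (median log2 fold change 1.26), against 6 higher and 1 lower without inflamed replicate 3. Ebi3, a subunit of interleukin-27, rose (1.3 to 5.21 against 0.197 to 1.23 CPM, log2 fold change 2.52 ± 0.51, adjusted p = 0.00392), and so did Il10ra, the receptor for interleukin-10 (4.83 to 29.6 against 1.66 to 7.15 CPM, log2 fold change 2.18 ± 0.49, adjusted p = 0.0067). Tgfb2 fell (1.74 to 4.15 against 4.37 to 16.5 CPM, log2 fold change -1.13 ± 0.31, adjusted p = 0.0197). Il22 did not pass without inflamed replicate 6 or non-inflamed replicates 1, 2, 6 or 7 (adjusted p = 0.0505 to 0.128). Tgfb2 lost the call without non-inflamed replicate 6 (adjusted p = 0.123). For Il22 the log2 fold change was 6.38 without non-inflamed replicate 4. Among the genes of the interleukin-17 axis 6 rose without non-inflamed replicate 7, in place of 3.

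Signalling genes downstream of these cytokines moved in part. Of 14 tested NF-kappaB genes 5 rose, 0 fell and 9 did not pass (median log2 fold change 0.52), against 6 higher and 0 lower without inflamed replicate 3. Nfkbie, an inhibitor that NF-kappaB itself induces, read 6.22 to 35.8 CPM (median 19.5) in inflamed and 2.75, 4.9, 4.93, 3.3 and 7.41 CPM in non-inflamed libraries. Nfkbie rose with a log2 fold change of 2.23 ± 0.61, adjusted p = 0.0189 (2.41 without inflamed replicate 3, 1.88 within batch 4), and inflamed replicate 3 lay at or below non-inflamed replicate 7, the highest of its group. Nfkbia, the best known of these inhibitors, rose (104 to 217 against 57.7 to 142 CPM, log2 fold change 1.02 ± 0.31, adjusted p = 0.0336), and the promoters of Nfkbia, Nfkb2 and Tnfaip3 hold the NF-kappaB motif, 3 of 11 windows found for the 14 genes. Of 16 tested JAK-STAT and SOCS genes 3 rose, 0 fell and 13 did not pass (median log2 fold change 0.40), against 4 higher and 0 lower without inflamed replicate 3. Socs1, which ends interferon signalling (13.2 to 76.5 against 0.959 to 18.9 CPM, log2 fold change 2.56 ± 0.83, adjusted p = 0.0451), and Stat4, which carries the signal of interleukin-12 (2.15 to 8.92 against 0.32 to 2.31 CPM, log2 fold change 2.46 ± 0.46, adjusted p = 0.00308), rose. Nfkbie did not pass without non-inflamed replicate 6 (adjusted p = 0.0869). Nfkbia lost the call without inflamed replicates 1 or 6 or non-inflamed replicates 1, 2 or 6 (adjusted p = 0.055 to 0.146). Socs1 missed the threshold without inflamed replicates 1, 4, 5 or 6 or non-inflamed replicates 1, 2, 4 or 6 (adjusted p = 0.0577 to 0.161). For Socs1 the log2 fold change was 4.30 without non-inflamed replicate 7. Among the NF-kappaB genes 1 rose without non-inflamed replicate 6, in place of 5. Among the JAK-STAT genes 7 rose without non-inflamed replicate 7, in place of 3.

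The pathway of p38 and MK2, the target of the inhibitor given to other mice of the study, stabilises mRNAs of cytokines. Of 16 tested genes of p38, MK2 and mRNA decay 2 rose, 1 fell and 13 did not pass (median log2 fold change 0.14), against 2 higher and 1 lower without inflamed replicate 3. Mapkapk2, which encodes MK2, read 115 to 169 CPM (median 146) in inflamed and 109, 98.7, 94.4, 92.8 and 108 CPM in non-inflamed libraries. Mapkapk2 rose with a log2 fold change of 0.46 ± 0.12, adjusted p = 0.0147 (0.51 without inflamed replicate 3, 0.46 within batch 4), and the groups did not overlap. Mapk11, p38 beta, rose (1.23 to 11.1 against 0.639 to 1.49 CPM, log2 fold change 2.08 ± 0.52, adjusted p = 0.0118), while Map2k6, a kinase that activates p38, fell (5.56 to 12.9 against 14.3 to 23.8 CPM, log2 fold change -1.33 ± 0.25, adjusted p = 0.00298). Of 14 tested immediate early genes 2 rose, 0 fell and 12 did not pass (median log2 fold change 0.29), against 3 higher and 0 lower without inflamed replicate 3. Egr2, a transcription factor of stimulated lymphocytes and myeloid cells (0.307 to 5.56 against 0.0985 to 1.23 CPM, log2 fold change 2.58 ± 0.69, adjusted p = 0.0173), and Ier3 (5.98 to 29.4 against 4.38 to 10.3 CPM, log2 fold change 1.37 ± 0.38, adjusted p = 0.0202) rose. Mapkapk2, Mapk11 and Egr2 did not pass without non-inflamed replicate 6 (adjusted p = 0.0547 to 0.114). Ier3 lost the call without inflamed replicate 1 or non-inflamed replicate 6 (adjusted p = 0.0674 and 0.111). For Egr2 the log2 fold change was 3.87 without non-inflamed replicate 7. Among the genes of this pathway 4 rose without non-inflamed replicates 4 or 7, in place of 2.

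Enzymes that degrade the extracellular matrix were a further group with large changes: of 22 tested matrix metalloproteinase and stromal genes 12 rose, 0 fell and 10 did not pass (median log2 fold change 2.04), against 14 higher and 0 lower without inflamed replicate 3. Mmp8, described above, had the largest change. Spp1, osteopontin, a phosphoprotein of macrophages and matrix, read 0.384 to 94.7 CPM (median 5.45) in inflamed and 0.0639, 0.211, 0.599, 0.246 and 0.669 CPM in non-inflamed libraries. Spp1 rose with a log2 fold change of 5.10 ± 1.12, adjusted p = 0.00617 (5.33 without inflamed replicate 3, 4.60 within batch 4), and inflamed replicate 3 lay at or below non-inflamed replicate 7, the highest of its group. The stromelysin gene Mmp3 read 0.46 to 79.2 CPM (median 37) in inflamed and 0.32, 0.474, 0.733, 0.197 and 1.54 CPM in non-inflamed libraries. Mmp3 rose with a log2 fold change of 5.09 ± 0.95, adjusted p = 0.00301 (5.35 without inflamed replicate 3, 4.84 within batch 4), and inflamed replicate 3 overlapped the non-inflamed range, whose top was replicate 7. Mmp10, the second stromelysin, rose (7.37 to 68.3 against 0.32 to 1.85 CPM, log2 fold change 4.20 ± 0.55, adjusted p = 0.000379), as did Timp1, an inhibitor of these enzymes (0.384 to 10.9 against 0.689 to 1.59 CPM, log2 fold change 2.34 ± 0.62, adjusted p = 0.0165). Timp1 did not pass without non-inflamed replicate 6 (adjusted p = 0.0872). Both stromelysin genes are induced through AP-1, and their promoters are shown because each holds the AP-1 motif TGAGTCA, in capitals, at 46 and 63 bases before the start. The windows, cut as above on the plus strand of GRCm38.p6, are chr9:7445572-7445871 for Mmp3 and chr9:7502092-7502391 for Mmp10.
Mmp3: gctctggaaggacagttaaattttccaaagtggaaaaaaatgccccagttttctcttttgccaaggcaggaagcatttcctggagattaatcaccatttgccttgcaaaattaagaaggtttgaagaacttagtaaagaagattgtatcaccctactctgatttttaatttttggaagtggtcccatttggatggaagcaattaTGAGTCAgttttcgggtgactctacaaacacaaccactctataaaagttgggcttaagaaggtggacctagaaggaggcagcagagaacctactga
Mmp10: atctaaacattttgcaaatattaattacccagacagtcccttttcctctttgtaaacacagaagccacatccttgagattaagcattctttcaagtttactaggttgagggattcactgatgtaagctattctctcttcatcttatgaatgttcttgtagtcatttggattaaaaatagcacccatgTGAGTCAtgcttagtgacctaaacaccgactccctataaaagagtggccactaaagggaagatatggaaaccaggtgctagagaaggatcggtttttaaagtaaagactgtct
Searched on both strands, this motif was present in 1709 of 32851 promoter windows (5.2%) and in 8 of the 16 windows found for the 22 genes of the list (Il11, Il13ra2, Mmp10, Mmp12, Mmp13, Mmp3, Mmp7 and Plaur).

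Other stromal groups moved little. Of 16 tested prostaglandin genes 1 rose, 2 fell and 13 did not pass (median log2 fold change 0.23), against 4 higher and 2 lower without inflamed replicate 3. Tbxas1, thromboxane synthase of platelets and macrophages, rose (2.92 to 15.4 against 1.53 to 4.42 CPM, log2 fold change 1.78 ± 0.42, adjusted p = 0.00948) and Hpgd, which inactivates prostaglandins, fell (34.3 to 213 against 147 to 276 CPM, log2 fold change -1.39 ± 0.44, adjusted p = 0.0411). Ptgs2, cyclooxygenase-2, did not pass (2.92 to 14.4 against 2.46 to 4.92 CPM, log2 fold change 1.15 ± 0.40, adjusted p = 0.0574). Of 22 tested collagen and fibroblast genes 2 rose, 0 fell and 20 did not pass (median log2 fold change 0.16), against 5 higher and 1 lower without inflamed replicate 3. The called ones were Lox, which cross-links collagen (2.61 to 51.1 against 1.95 to 3.32 CPM, log2 fold change 2.42 ± 0.44, adjusted p = 0.00261), and Thy1, of fibroblasts and, in mice, T cells (13.4 to 75.4 against 8.86 to 16.5 CPM, log2 fold change 2.01 ± 0.35, adjusted p = 0.00235). Of 10 endothelial genes 0 passed in either fit, with 2 at most when 1 library was left out. Of 8 tested adipose genes 1 rose, 0 fell and 7 did not pass (median log2 fold change -0.33, and -1.01, -0.80 and -0.92 without non-inflamed replicates 1, 2 and 4), against 1 higher and 0 lower without inflamed replicate 3. The called member, Hp, encodes haptoglobin, an acute phase protein that myeloid cells also make (3.15 to 203 against 0.128 to 4.83 CPM, log2 fold change 4.83 ± 1.03, adjusted p = 0.0052). Tbxas1 did not pass without non-inflamed replicate 6 (adjusted p = 0.0666). Hpgd lost the call without inflamed replicates 1, 4, 5 or 6 or non-inflamed replicates 1, 4 or 6 (adjusted p = 0.0557 to 0.137). Ptgs2 passed without inflamed replicate 3 or non-inflamed replicate 7 (adjusted p = 0.0247 and 0.0208). Among the prostaglandin genes 3 rose without inflamed replicate 2 or non-inflamed replicate 7, in place of 1.

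Antimicrobial proteins are made by the epithelium and some of them, such as Lcn2 and Saa3, also by myeloid cells, which whole tissue does not separate. Of 19 tested epithelial antimicrobial genes 4 rose, 2 fell and 13 did not pass (median log2 fold change 0.59, and 1.13, 1.20 and 1.12 without non-inflamed replicates 2, 6 and 7), against 5 higher and 2 lower without inflamed replicate 3. Reg3g, a lectin that kills Gram-positive bacteria, read 2284 to 11587 CPM (median 5146) in inflamed and 2.49, 10.1, 32.8, 3.94 and 847 CPM in non-inflamed libraries. Reg3g rose with a log2 fold change of 4.71 ± 1.25, adjusted p = 0.0168 (4.67 without inflamed replicate 3, 3.64 within batch 4), and the groups did not overlap. Reg3b, its neighbour and close relative, rose likewise (4484 to 18819 against 5.05 to 1371 CPM, log2 fold change 4.93 ± 1.22, adjusted p = 0.0119). Lcn2, which withholds bacterial iron carriers, read 7.37 to 474 CPM (median 73.3) in inflamed and 3.71, 4.11, 4.53, 2.31 and 14.7 CPM in non-inflamed libraries. Lcn2 rose with a log2 fold change of 3.42 ± 0.71, adjusted p = 0.0047 (3.67 without inflamed replicate 3, 2.79 within batch 4), and inflamed replicates 2 and 3 overlapped the non-inflamed range, whose top was replicate 7. Saa3, a serum amyloid induced in inflamed mucosa, read 3.84 to 801 CPM (median 170.0) in inflamed and 0, 0, 2.6, 0.0985 and 7.1 CPM in non-inflamed libraries. Saa3 rose with a log2 fold change of 6.72 ± 1.5, adjusted p = 0.00688 (7.003 without inflamed replicate 3, 6.18 within batch 4), and inflamed replicate 3 lay at or below non-inflamed replicate 7, the highest of its group. Pigr, which carries immunoglobulin A into the lumen, fell (1018 to 3657 against 4482 to 6378 CPM, log2 fold change -1.02 ± 0.25, adjusted p = 0.0106). Nos2 and Duox2, the latter an epithelial oxidase, did not pass (Duox2 log2 fold change 0.27 ± 0.39, adjusted p = 0.655). Reg3g did not pass without non-inflamed replicate 6 (adjusted p = 0.0507). For Reg3g and Reg3b the log2 fold change was 9.12 and 8.89 without non-inflamed replicate 7.

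Gasdermins form pores in dying cells. Of 14 tested inflammasome and gasdermin genes 1 rose, 4 fell and 9 did not pass (median log2 fold change 0.14, and -0.20 without inflamed replicate 3), against 1 higher and 4 lower without inflamed replicate 3. All 4 that fell were gasdermins, 3 of them the near-identical Gsdmc2, Gsdmc3 and Gsdmc4, between which reads could be split. Gsdmc3 read 2.06 to 80.5 CPM (median 7.21) in inflamed and 141, 116, 253, 187 and 82.4 CPM in non-inflamed libraries. Gsdmc3 fell with a log2 fold change of -3.08 ± 0.74, adjusted p = 0.00958 (-2.95 without inflamed replicate 3, -2.61 within batch 4), and the groups did not overlap. Nlrp3, the sensor of a myeloid inflammasome, rose (0.844 to 9.09 against 0.148 to 1.44 CPM, log2 fold change 2.77 ± 0.57, adjusted p = 0.00448). Of 14 tested genes of the regenerating epithelium 4 rose, 1 fell and 9 did not pass (median log2 fold change 0.93, and 0.50 without inflamed replicate 6 and 0.54 without non-inflamed replicate 6), against 7 higher and 1 lower without inflamed replicate 3. Cldn4, a claudin of injured epithelium (43.4 to 265 against 21.3 to 71.2 CPM, log2 fold change 1.99 ± 0.47, adjusted p = 0.00895), and Areg, amphiregulin (12.9 to 135 against 9.52 to 30.4 CPM, log2 fold change 1.96 ± 0.50, adjusted p = 0.0136), rose. Ereg, epiregulin (6.14 to 22.3 against 2.95 to 7.01 CPM, log2 fold change 1.30 ± 0.37, adjusted p = 0.0237), and Hbegf, chosen after its values were seen (23.5 to 46.3 against 5.94 to 21 CPM, log2 fold change 1.19 ± 0.35, adjusted p = 0.0265), rose too and belong with Areg to a list of EGF receptor ligands and receptors. Of 10 tested members of that list 3 rose, 0 fell and 7 did not pass (median log2 fold change 0.10), against 3 higher and 2 lower without inflamed replicate 3. Of 17 tested tight junction genes 1 rose, 0 fell and 16 did not pass (median log2 fold change 0.00), against 1 higher and 3 lower without inflamed replicate 3, and the 1 that rose was Cldn4. Msln, of mesothelium, had counts only in non-inflamed replicates 6 and 7 and no counts in inflamed libraries, at least 23.5-fold lower against 3 counts over the group (14-fold without non-inflamed replicate 6, the highest). Gsdmc3 did not pass without non-inflamed replicate 6 (adjusted p = 0.057). Areg and Ereg lost their calls without inflamed replicate 1 or non-inflamed replicate 6 (adjusted p = 0.0512 to 0.124). Hbegf missed the threshold without inflamed replicates 1 or 5 or non-inflamed replicate 6 (adjusted p = 0.0528 to 0.122). Msln did not pass without inflamed replicates 1, 4, 5 or 6 or non-inflamed replicates 6 or 7 (adjusted p = 0.0558 to 0.138). Among the inflammasome and gasdermin genes 0 fell without non-inflamed replicate 6, 1 fell without inflamed replicate 1 and 2 fell without inflamed replicates 4, 5 or 6 or non-inflamed replicate 1, in place of 4. Without inflamed replicate 1 or non-inflamed replicate 6, 1 regenerative gene rose in place of 4. The EGF ligand and receptor genes then had 0 higher, in place of 3.

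Secretory lineages changed in part. Of 14 tested goblet cell genes 0 rose, 2 fell and 12 did not pass (median log2 fold change -0.64, and -0.34 without non-inflamed replicate 6), against 0 higher and 4 lower without inflamed replicate 3. Muc2, the gel-forming mucin, read 173 to 583 CPM (median 395) in inflamed and 770.3, 1351, 775, 1073 and 518 CPM in non-inflamed libraries and did not pass (log2 fold change -0.65 ± 0.47, adjusted p = 0.356, -0.74 without inflamed replicate 3, -0.99 within batch 4). Clca1, a secreted protease that loosens mucus, read 194 to 1966 CPM (median 439) in inflamed and 4029, 3889, 1994, 4309 and 1917 CPM in non-inflamed libraries. Clca1 fell with a log2 fold change of -1.89 ± 0.50, adjusted p = 0.0154 (-2.14 without inflamed replicate 3, -1.71 within batch 4), and inflamed replicate 2 lay at or above non-inflamed replicate 7, the lowest of its group. Klk1, a kallikrein of goblet cells, fell (23.3 to 204 against 95.4 to 629 CPM, log2 fold change -2.19 ± 0.61, adjusted p = 0.0211). Of 9 tested tuft cell genes 2 rose, 0 fell and 7 did not pass (median log2 fold change 0.02), against 2 higher and 1 lower without inflamed replicate 3. Plcg2, a signalling protein of leukocytes too, was among those that rose (15 to 30.8 against 5.66 to 16.2 CPM, log2 fold change 0.77 ± 0.23, adjusted p = 0.0316). Genes more particular to tuft cells, chosen after their values were seen, had values below 0 and did not pass, namely Trpm5 (log2 fold change -1.51 ± 0.67, adjusted p = 0.132), Pou2f3 (log2 fold change -1.34 ± 0.78, adjusted p = 0.256) and Dclk1 (log2 fold change -1.19 ± 0.60, adjusted p = 0.182). Of 13 tested enteroendocrine genes 2 rose, 3 fell and 8 did not pass (median log2 fold change -0.93, and -0.56 without non-inflamed replicate 6), against 2 higher and 5 lower without inflamed replicate 3. Nts, neurotensin (0.571 to 138 against 0.0527 to 0.733 CPM, log2 fold change 6.17 ± 1.75, adjusted p = 0.0226), and Cck, cholecystokinin (1.66 to 9.05 against 0 to 1.53 CPM, log2 fold change 2.64 ± 0.79, adjusted p = 0.0309), are hormones of the small intestine, and for Nts the highest value, 138 CPM, was that of inflamed replicate 3. The 3 that fell, chosen after their values were seen, were Tph1, which makes serotonin (3.99 to 8.64 against 5.53 to 32.1 CPM, log2 fold change -1.63 ± 0.42, adjusted p = 0.0146), the granule protein gene Chgb (32.7 to 71.4 against 62.5 to 149 CPM, log2 fold change -1.10 ± 0.29, adjusted p = 0.017) and the transcription factor gene Neurod1 (0.579 to 2.76 against 2.47 to 3.5 CPM, log2 fold change -1.15 ± 0.36, adjusted p = 0.0368). Of 11 tested stem cell and Wnt feedback genes 0 rose, 1 fell and 10 did not pass (median log2 fold change -0.28), against 0 higher and 2 lower without inflamed replicate 3. The called one was Sox9, a factor of the crypt base (16.6 to 44.3 against 32.2 to 81.7 CPM, log2 fold change -0.70 ± 0.23, adjusted p = 0.0455). Clca1, Klk1, Tph1 and Chgb did not pass without non-inflamed replicate 6 (adjusted p = 0.118 to 0.221). Plcg2 lost the call without inflamed replicate 4 or non-inflamed replicates 1 or 6 (adjusted p = 0.0619 to 0.166). Nts missed the threshold without non-inflamed replicates 6 or 7 (adjusted p = 0.097 and 0.0532). Cck did not pass without inflamed replicates 1 or 6 or non-inflamed replicate 7 (adjusted p = 0.0504 to 0.0604). Neurod1 lost the call without inflamed replicates 1, 4, 5 or 6 or non-inflamed replicates 1, 4 or 6 (adjusted p = 0.0507 to 0.17). Sox9 missed the threshold without inflamed replicates 3, 4, 5 or 6 or non-inflamed replicates 2, 4 or 6 (adjusted p = 0.0545 to 0.255). Trpm5 passed without inflamed replicate 3 (adjusted p = 0.0316). For Nts the log2 fold change was 1.72 without inflamed replicate 3. For Tph1 the log2 fold change was -1.03 without non-inflamed replicate 6. Among the goblet and stem cell genes 4 and 3 fell without inflamed replicate 2, in place of 2 and 1. Among the enteroendocrine genes 0 fell without non-inflamed replicate 6, in place of 3.

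Transport genes of the colonic surface fell in part. Of 25 tested colonic transport genes 1 rose, 6 fell and 18 did not pass (median log2 fold change -0.88), against 1 higher and 13 lower without inflamed replicate 3. Slc26a3, which exchanges chloride for bicarbonate, read 70.3 to 627 CPM (median 262) in inflamed and 2856, 1624, 1970, 1209 and 817 CPM in non-inflamed libraries. Slc26a3 fell with a log2 fold change of -2.27 ± 0.47, adjusted p = 0.0044 (-2.19 without inflamed replicate 3, -1.56 within batch 4), and the groups did not overlap. The 1 that rose, Guca2b, uroguanylin (13.2 to 584 against 6.94 to 15.7 CPM, log2 fold change 3.67 ± 0.89, adjusted p = 0.0107), was highest in inflamed replicate 3 at 584 CPM. Of 14 tested colonocyte genes 0 rose, 3 fell and 11 did not pass (median log2 fold change -0.46), against 0 higher and 6 lower without inflamed replicate 3. Slc37a2, a sugar phosphate transporter, read 2.53 to 83.3 CPM (median 10.7) in inflamed and 475, 185, 238, 297 and 108 CPM in non-inflamed libraries. Slc37a2 fell with a log2 fold change of -3.71 ± 0.77, adjusted p = 0.00453 (-3.48 without inflamed replicate 3, -3.10 within batch 4), and the groups did not overlap. Car1, carbonic anhydrase of colonocytes, read 0.46 to 667 CPM (median 345) in inflamed and 2446, 657, 1590, 1516 and 523 CPM in non-inflamed libraries and did not pass (log2 fold change -1.67 ± 0.87, adjusted p = 0.199, -1.41 without inflamed replicate 3, -1.53 within batch 4). The lowest inflamed Car1 value, 0.460 CPM, was that of replicate 3. Guca2b did not pass without non-inflamed replicate 6 (adjusted p = 0.05003). For Guca2b the log2 fold change was 1.92 without inflamed replicate 3. Among the colonic transport genes 3 fell without non-inflamed replicate 6, in place of 6.

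**Figure D5:**
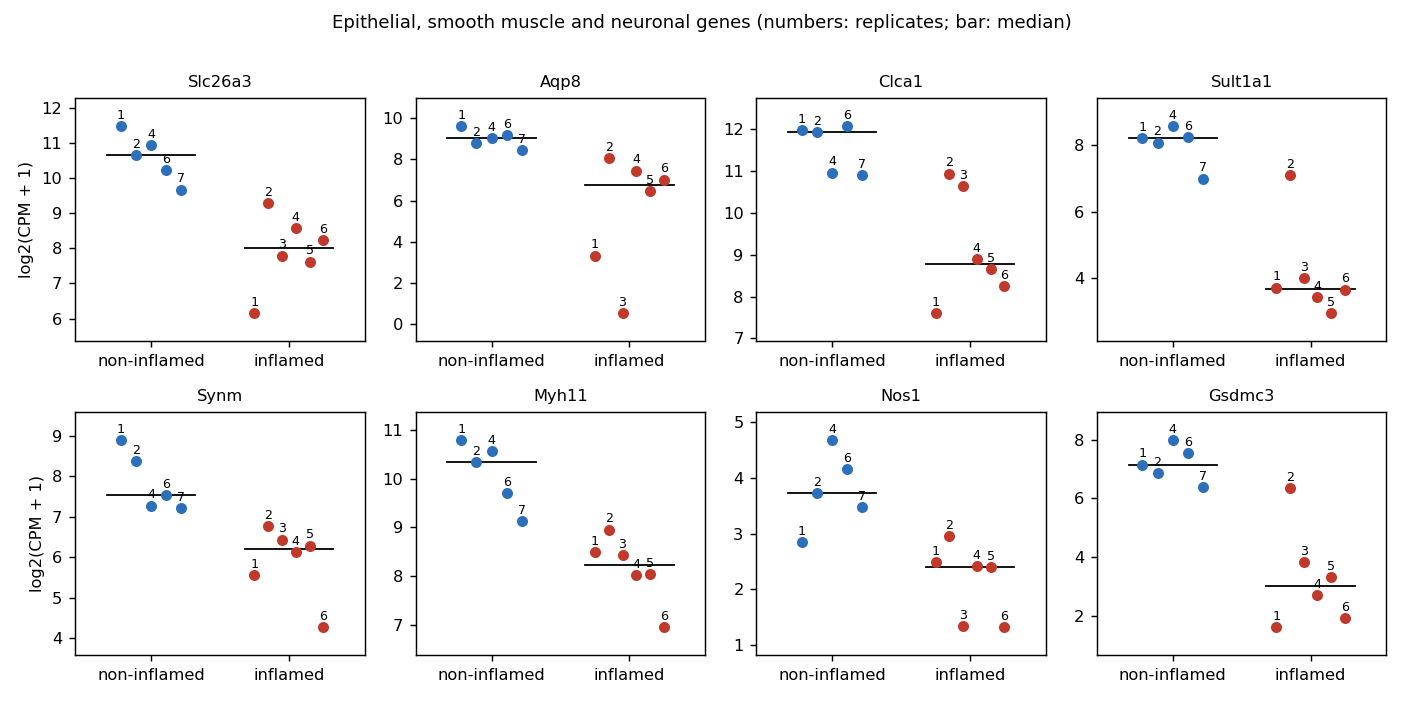
Log2(CPM + 1) of Slc26a3, Aqp8, Clca1, Sult1a1, Synm, Myh11, Nos1 and Gsdmc3 in the 11 vehicle libraries, 1 point per library with its replicate number, and bars at the group medians. The groups do not overlap for Slc26a3, Aqp8, Synm, Myh11 and Gsdmc3, and inflamed replicate 2 is the highest of its group for Gsdmc3 and Sult1a1.

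Small intestinal genes had their highest summed level in inflamed replicate 3. Of 13 tested small intestinal enterocyte genes 6 rose, 0 fell and 7 did not pass (median log2 fold change 4.31, and 0.31 without inflamed replicate 3), against 0 higher and 3 lower without inflamed replicate 3. Apoa1, an apolipoprotein, read 0.0519 to 11510 CPM (median 0.188) in inflamed and 4.35, 0.211, 0.133, 0.0492 and 0.926 CPM in non-inflamed libraries, and the highest value was that of inflamed replicate 3. Apoa1 gave a log2 fold change of 10.35 ± 3.29, adjusted p = 0.0373 (0.31 without inflamed replicate 3, 12.20 within batch 4). Sis, sucrase-isomaltase, read 0 to 6515 CPM (median 0.288) in inflamed and 1.21, 0.369, 0.3996, 0.837 and 0.669 CPM in non-inflamed libraries, again with inflamed replicate 3 highest. Sis gave a log2 fold change of 10.11 ± 2.81, adjusted p = 0.0189 (0.61 without inflamed replicate 3, 10.76 within batch 4). Of 5 tested Paneth cell genes 3 rose, 0 fell and 2 did not pass (median log2 fold change 5.88, and 2.86 without inflamed replicate 3), against 2 higher and 0 lower without inflamed replicate 3. Lyz1, the lysozyme of Paneth cells and a near copy of the macrophage gene Lyz2, chosen after its values were seen, read 44.3 to 2384 CPM (median 59.98) in inflamed and 6.01, 7.27, 10.9, 3.2 and 12 CPM in non-inflamed libraries. Lyz1 rose with a log2 fold change of 5.88 ± 1.21, adjusted p = 0.00452 (3.46 without inflamed replicate 3, 6.09 within batch 4), and the groups did not overlap. Itln1, a lectin (1.92 to 799 against 1.72 to 7.85 CPM, log2 fold change 6.77 ± 1.79, adjusted p = 0.0164), and the defensin Defa24 (0 to 1902 against 0 to 0.206 CPM, log2 fold change 12.24 ± 2.56, adjusted p = 0.00327) rose, and near-identical defensins make single values uncertain. Of 13 tested positional transcription factor genes 2 rose, 1 fell and 10 did not pass (median log2 fold change -0.83), against 0 higher and 4 lower without inflamed replicate 3. Gata4 (0.174 to 44.7 against 0 to 0.411 CPM, log2 fold change 5.48 ± 1.53, adjusted p = 0.021) and Gata5 (0.293 to 133 against 0.295 to 0.466 CPM, log2 fold change 6.06 ± 1.73, adjusted p = 0.0239), factors of the proximal intestine, had their highest values in inflamed replicate 3, and Gata5 read 133 CPM there. Hoxb13 did not pass with all libraries (log2 fold change -1.28 ± 0.77, adjusted p = 0.263, -1.03 without inflamed replicate 3, -0.97 within batch 4). Apoa1 did not pass without inflamed replicates 1 or 3 or non-inflamed replicates 2, 6 or 7 (adjusted p = 0.0523 to 0.939). Sis, Itln1 and Gata4 lost their calls without inflamed replicate 3 or non-inflamed replicate 6 (adjusted p = 0.0607 to 0.823). Gata5 missed the threshold without inflamed replicate 3 or non-inflamed replicates 6 or 7 (adjusted p = 0.0519 to 0.102). Hoxb13 passed without inflamed replicate 3 (adjusted p = 0.0131). For Itln1, Defa24, Gata4 and Gata5 the log2 fold change was 2.86, 6.45, 2.36 and 1.53 without inflamed replicate 3. Among the small intestinal enterocyte genes 0 rose without non-inflamed replicate 6, in place of 6.

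Genes that detoxify drugs and dietary compounds fell in part. Of 19 tested cytochrome P450 genes 1 rose, 3 fell and 15 did not pass (median log2 fold change -0.37, and -1.29 without inflamed replicate 3), against 0 higher and 6 lower without inflamed replicate 3. Cyp2c69, a P450 with near-identical relatives, had no counts in inflamed and 4.94 ± 4.85 CPM (SD) in non-inflamed libraries, at least 163-fold lower against 3 counts over the group (112-fold without non-inflamed replicate 6, the highest). Cyp2d10 fell (0 to 20.2 against 27.3 to 79.5 CPM, log2 fold change -2.45 ± 0.77, adjusted p = 0.0392). Of 23 tested phase II conjugation genes 0 rose, 7 fell and 16 did not pass (median log2 fold change -0.55, and -1.24 without inflamed replicate 3), against 0 higher and 15 lower without inflamed replicate 3. Sult1a1, a phenol sulfotransferase, read 6.76 to 138 CPM (median 11.9) in inflamed and 295, 270.2, 381, 305 and 127 CPM in non-inflamed libraries. Sult1a1 fell with a log2 fold change of -3.13 ± 0.75, adjusted p = 0.00994 (-2.98 without inflamed replicate 3, -2.58 within batch 4), and inflamed replicate 2 lay at or above non-inflamed replicate 7, the lowest of its group. Sult1c2, a related enzyme, fell (1.04 to 9.47 against 10.3 to 46 CPM, log2 fold change -3.13 ± 0.55, adjusted p = 0.00255). Of 15 tested retinoid metabolism genes 3 rose, 2 fell and 10 did not pass (median log2 fold change 0.07, and 0.46 without non-inflamed replicate 6), against 3 higher and 3 lower without inflamed replicate 3. Aldh1a3, which makes retinoic acid, was among those that rose (16.3 to 87.7 against 2.48 to 11.4 CPM, log2 fold change 2.09 ± 0.40, adjusted p = 0.00321). Cyp2c69 and Sult1a1 did not pass without non-inflamed replicate 6 (adjusted p = 0.0651 and 0.0555). Cyp2d10 lost the call without inflamed replicates 1, 4 or 5 or non-inflamed replicates 1, 2 or 6 (adjusted p = 0.0512 to 0.107). Among the cytochrome P450 genes 3 rose without inflamed replicate 2, in place of 1. Of these genes 0 fell without non-inflamed replicate 6, 5 without non-inflamed replicate 7 and 7 without inflamed replicate 2, in place of 3. Among the phase II genes 2 fell without non-inflamed replicate 6, in place of 7.

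Energy metabolism changed in single genes (of all genes tested 7.9% rose and 6.28% fell). Of 23 tested PPAR and fatty acid oxidation genes 1 rose, 2 fell and 20 did not pass (median log2 fold change -0.22), against 1 higher and 7 lower without inflamed replicate 3. Ppargc1a, a coactivator of mitochondrial biogenesis, fell (7.99 to 41.1 against 38 to 70.7 CPM, log2 fold change -1.60 ± 0.38, adjusted p = 0.00895), and Acadl, an acyl-CoA dehydrogenase, rose (276 to 519 against 201 to 355 CPM, log2 fold change 0.62 ± 0.19, adjusted p = 0.0372). Of 14 tested glycolysis and hypoxia genes 4 rose, 0 fell and 10 did not pass (median log2 fold change 0.34), against 3 higher and 0 lower without inflamed replicate 3. Hk3, the hexokinase of myeloid cells (2.61 to 34.8 against 0.64 to 4.68 CPM, log2 fold change 2.99 ± 0.69, adjusted p = 0.00795), and Pfkfb3, which speeds glycolysis (22.6 to 117 against 8.79 to 36.8 CPM, log2 fold change 1.63 ± 0.46, adjusted p = 0.0222), rose. Of 17 tested unfolded protein response genes 2 rose, 0 fell and 15 did not pass (median log2 fold change 0.27), against 1 higher and 0 lower without inflamed replicate 3. The called ones were Trib3 (1.17 to 20.4 against 0.369 to 2.62 CPM, log2 fold change 2.36 ± 0.75, adjusted p = 0.041) and Atf4 (114 to 267 against 72.6 to 146 CPM, log2 fold change 0.80 ± 0.23, adjusted p = 0.0234). Acadl did not pass without inflamed replicates 1, 5 or 6 or non-inflamed replicates 1, 2 or 6 (adjusted p = 0.052 to 0.167). Pfkfb3 lost the call without inflamed replicates 1 or 5 or non-inflamed replicate 6 (adjusted p = 0.0519 to 0.112). Trib3 missed the threshold without inflamed replicates 1, 3 or 6 or non-inflamed replicates 1, 2, 4 or 6 (adjusted p = 0.053 to 0.168). Atf4 did not pass without inflamed replicates 1 or 6 or non-inflamed replicate 6 (adjusted p = 0.0519 to 0.105). For Pfkfb3 the log2 fold change was 2.53 without non-inflamed replicate 7. For Trib3 the log2 fold change was 1.29 without inflamed replicate 3. Among the glycolysis genes 1 rose without inflamed replicate 1 and 2 rose without inflamed replicate 5 or non-inflamed replicate 6, in place of 4.

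In several lists 0 genes passed with all libraries by edgeR. Of 16 tested circadian clock genes 0 rose, 0 fell and 16 did not pass (median log2 fold change -0.98), against 0 higher and 6 lower without inflamed replicate 3. Nr1d1, a repressor of the clock chosen after its values were seen, read 9.84 to 117 CPM (median 25.6) in inflamed and 239.8, 116, 169, 102 and 81.5 CPM in non-inflamed libraries and did not pass (log2 fold change -1.46 ± 0.53, adjusted p = 0.0698, -2.09 without inflamed replicate 3, -1.07 within batch 4). Of 25 tested respiratory chain genes 0 rose, 0 fell and 25 did not pass (median log2 fold change 0.06), against 0 higher and 1 lower without inflamed replicate 3. Of 20 tested cell cycle genes 0 rose, 0 fell and 20 did not pass (median log2 fold change 0.48, and 0.90 without non-inflamed replicate 7), against 0 higher and 0 lower without inflamed replicate 3. Of 12 tested heat shock chaperone genes 0 rose, 0 fell and 12 did not pass (median log2 fold change -0.22), against 0 higher and 0 lower without inflamed replicate 3. Nr1d1 passed without inflamed replicate 3 (adjusted p = 0.00233). Among the cell cycle genes 3 rose without non-inflamed replicate 7, in place of 0. Among the heat shock chaperone genes 3 fell without inflamed replicate 5, in place of 0.

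Genes of the muscle wall were lower. Of 14 tested smooth muscle genes 0 rose, 10 fell and 4 did not pass (median log2 fold change -0.90), against 0 higher and 11 lower without inflamed replicate 3. Synm, synemin, an intermediate filament protein of muscle, read 18.4 to 108 CPM (median 72.8) in inflamed and 474, 328, 153, 184 and 147 CPM in non-inflamed libraries. Synm fell with a log2 fold change of -1.80 ± 0.59, adjusted p = 0.0461 (-1.89 without inflamed replicate 3, -1.21 within batch 4), and the groups did not overlap. Myh11, the myosin heavy chain of smooth muscle, read 123 to 494 CPM (median 303) in inflamed and 1779, 1305, 1512, 835 and 561 CPM in non-inflamed libraries. Myh11 fell with a log2 fold change of -1.48 ± 0.36, adjusted p = 0.0114 (-1.54 without inflamed replicate 3, -1.24 within batch 4), and the groups did not overlap. Pln, phospholamban, which restrains the calcium pump, fell (0.686 to 5.66 against 3.39 to 17.3 CPM, log2 fold change -1.58 ± 0.49, adjusted p = 0.0373). The summed level of the smooth muscle list was 2400 to 3966 CPM in inflamed and 3511 to 11636 CPM in non-inflamed libraries, the lowest of them non-inflamed replicate 7. Of 15 tested nerve and glia genes 0 rose, 3 fell and 12 did not pass (median log2 fold change -0.997), against 0 higher and 4 lower without inflamed replicate 3. Nos1, which makes the nitric oxide of inhibitory motor neurons, read 1.51 to 6.73 CPM (median 4.31) in inflamed and 6.2, 12.3, 24.6, 16.9 and 10.1 CPM in non-inflamed libraries. Nos1 fell with a log2 fold change of -1.95 ± 0.44, adjusted p = 0.00672 (-1.80 without inflamed replicate 3, -1.88 within batch 4), and inflamed replicate 2 overlapped the non-inflamed range, whose bottom was replicate 1. S100b, of enteric glia, fell (0.343 to 0.732 against 0.566 to 6.06 CPM, log2 fold change -1.57 ± 0.41, adjusted p = 0.0148). Synm did not pass without inflamed replicates 1, 4, 5 or 6 or non-inflamed replicates 1, 2 or 6 (adjusted p = 0.0583 to 0.118). Myh11, Nos1 and S100b lost their calls without non-inflamed replicate 6 (adjusted p = 0.0544 to 0.104). Pln missed the threshold without inflamed replicates 1, 4, 5 or 6 or non-inflamed replicates 4 or 6 (adjusted p = 0.0542 to 0.36). For Pln the log2 fold change was -0.97 without non-inflamed replicate 6. Among the smooth muscle genes 0 fell without non-inflamed replicate 6 and 2 fell without inflamed replicate 1, in place of 10. Among the nerve and glia genes 0 fell without non-inflamed replicate 6 and 5 fell without inflamed replicate 2 or non-inflamed replicates 1, 2 or 7, in place of 3.

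Lists of cells from outside the bowel wall were checked beside these. Of 16 tested pancreatic acinar genes 0 rose, 1 fell and 15 did not pass (median log2 fold change 5.89, and 2.09 and 2.51 without inflamed replicates 1 and 5), against 0 higher and 1 lower without inflamed replicate 3. With members that read 0 in a whole group at their bound, the median was 5.99. The called gene, Sycn, syncollin, is also read in colon, at 0.23 to 157 CPM (median 14.9) in inflamed and 1830, 632, 1353, 920.2 and 109.5 CPM in non-inflamed libraries. Sycn fell with a log2 fold change of -4.18 ± 1.14, adjusted p = 0.0187 (-3.90 without inflamed replicate 3, -3.80 within batch 4), and inflamed replicates 1 and 2 lay at or above non-inflamed replicate 7, the lowest of its group. Of 10 tested squamous epithelium genes 0 rose, 0 fell and 10 did not pass (median log2 fold change -0.29, and -0.92 and -0.67 without inflamed replicates 2 and 6 and -0.74 and 4.67 without non-inflamed replicates 6 and 7), against 0 higher and 0 lower without inflamed replicate 3. Of 10 tested skeletal muscle genes 0 rose, 0 fell and 10 did not pass (median log2 fold change 1.22, and 1.86 and 0.43 without non-inflamed replicates 2 and 6), against 0 higher and 0 lower without inflamed replicate 3. Their summed levels were 7.53 to 417 CPM in inflamed and 13.4 to 65.9 CPM in non-inflamed libraries. Of 6 tested red blood cell genes 0 rose, 1 fell and 5 did not pass (median log2 fold change 0.40, and 0.06 and -0.10 without inflamed replicates 1 and 3 and 1.29 without non-inflamed replicate 6), against 0 higher and 1 lower without inflamed replicate 3. Sycn did not pass without non-inflamed replicate 6 (adjusted p = 0.106).

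Among the called genes with the largest changes across the whole transcriptome, several were not members of the lists above. Cdkn2a, which encodes cell cycle inhibitors that mark senescent cells, read 0.997 to 7.99 CPM (median 2.74) in inflamed and 0.0639, 0, 0, 0 and 0.103 CPM in non-inflamed libraries. Cdkn2a rose with a log2 fold change of 7.47 ± 0.89, adjusted p = 2.49e-05 (7.74 without inflamed replicate 3, 5.73 within batch 4), and the groups did not overlap. Trem3, a receptor of myeloid cells, rose (0 to 6.54 against 0 to 0.0492 CPM, log2 fold change 6.79 ± 1.49, adjusted p = 0.00483). Sesn3, a stress-induced regulator, read 2.18 ± 1.75 CPM (SD) in inflamed libraries, with 0 in replicate 1, and no counts in non-inflamed ones, at least 64.9-fold higher against 3 counts over the group (48.5-fold without inflamed replicate 6, the highest). Klb, the coreceptor for endocrine fibroblast growth factors, read 0 to 1.54 CPM (median 0.14) in inflamed and 17.7, 11.8, 4.33, 10.2 and 1.49 CPM in non-inflamed libraries. Klb fell with a log2 fold change of -4.82 ± 0.78, adjusted p = 0.00113 (-4.56 without inflamed replicate 3, -5.10 within batch 4), and inflamed replicate 1 lay at or above non-inflamed replicate 7, the lowest of its group. Hao2, a peroxisomal oxidase, read 0.289 to 103 CPM (median 1.27) in inflamed and 479, 245, 397, 469.7 and 58.4 CPM in non-inflamed libraries. Hao2 fell with a log2 fold change of -4.52 ± 1.27, adjusted p = 0.022 (-4.21 without inflamed replicate 3, -3.58 within batch 4), and inflamed replicate 2 overlapped the non-inflamed range, whose bottom was replicate 7. Itih2, an inhibitor of trypsin-like proteases (0 to 2.93 against 1.65 to 21.5 CPM, log2 fold change -4.20 ± 0.93, adjusted p = 0.00643), Mettl7a2, a methyltransferase-like protein (0 to 4.34 against 3.75 to 49.4 CPM, log2 fold change -3.88 ± 1.01, adjusted p = 0.0134), and Cyp2c40 (0 to 0.634 against 0.0514 to 3.94 CPM, log2 fold change -3.94 ± 0.95, adjusted p = 0.00937) fell, and in each of these inflamed replicate 2 was the highest of its group. Zdhhc1 (0 to 2.15 against 1.53 to 6.11 CPM, log2 fold change -4.32 ± 1.03, adjusted p = 0.00927), Igdcc4 (0 to 2.65 against 0 to 17.7 CPM, log2 fold change -4.17 ± 1.33, adjusted p = 0.0411) and Kif13b (0 to 1.53 against 0 to 13.3 CPM, log2 fold change -4.30 ± 1.04, adjusted p = 0.00934) fell too. Zdhhc1 read 0 in every inflamed library but replicate 3, whose 2.15 CPM lay within the non-inflamed range. Kif13b read 0 in non-inflamed replicates 1, 2 and 4 and in 4 of 6 inflamed libraries, and Igdcc4 read 0 in non-inflamed replicate 4. Sesn3 did not pass without non-inflamed replicates 6 or 7 (adjusted p = 0.108 and 0.0522). Hao2, Itih2, Mettl7a2, Cyp2c40 and Kif13b lost their calls without non-inflamed replicate 6 (adjusted p = 0.0548 to 0.163). Igdcc4 missed the threshold without inflamed replicates 1, 2, 5 or 6 or non-inflamed replicates 1, 2 or 6 (adjusted p = 0.0532 to 0.193). For Hao2, Itih2, Mettl7a2 and Cyp2c40 the log2 fold change was -7.79, -6.35, -6.10 and -6.73 without inflamed replicate 2. For Zdhhc1 the log2 fold change was -9.61 without inflamed replicate 3. For Igdcc4 the log2 fold change was -7.66 without inflamed replicate 4.

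The design also asks whether the effect of inflammation differed between vehicle and the inhibitor. The interaction of inflammation with treatment was past the threshold for 0 of 15317 genes (0%) with edgeR, with 339 at an unadjusted p under 0.05, and for 9 genes with DESeq2, of which 8 had the higher change with vehicle. Without inflamed replicate 3 it was again 0, with 277 at an unadjusted p under 0.05. These counts do not show that inflammation acted alike under both treatments.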

How the data were processed

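Poly-A selected, strand-specific RNA-seq libraries of mouse intestine were used. The deposited values are expected counts per gene, given as whole numbers that differ in total between libraries, and a normalized signal per gene whose scaling by the authors the labels do not describe. Per the submitters' processing notes Salmon 0.14.1 and DESeq2 (no version) were used with mm10 and GRCm38. The annotation release is not given in the sources used here. Of 29720 gene identifiers, 29395 matched GENCODE and 325 did not.

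The deposited counts of all 23 transfer-model libraries were fitted in R 4.3.3 with edgeR 4.0.16 (filterByExpr, TMM, robust quasi-likelihood with group and batch as terms, two-sided F-tests). The contrast was inflamed over non-inflamed vehicle, with Benjamini-Hochberg adjustment over 15317 genes. The fit was tested on simulated data with planted changes. Alternatives were RLE scaling, DESeq2 1.42.0, fits with no count filter, without batch, with a replicate block and with the vehicle groups alone, batch 4 alone, the deposited normalized signal with limma 3.58.1 after adding 1, each library left out and, chosen after seeing the data, the older quasi-likelihood method and 2 sets of libraries left out together. The TNF model tables were not used here.

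The members and the 63 lists (992 of 996 entries matched) were chosen with earlier results of these data known. Genes named are 22 fixed ones, the 2 called members of each list with the largest change and a mean of at least 1 CPM, and the 10 highest and 10 lowest called genes, of which some are not reported here. Others were chosen after their values were seen. A group without counts has a floor of 3 counts. Floors cover counting error only, since PCR copies were not marked by molecular identifiers.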

Additional observations from a re-analysis of the deposited data

Results flagged for a closer look

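Each named gene was examined in each group for a library far from the rest on the log2(CPM + 1) scale, and 31 of 250 groups held one. For normally distributed values chance marks about 1 in 20 groups, a rate that cannot be applied to groups near 0 CPM. Where all other libraries read 0, any count marks the group. This holds for Gzmd, Gzmg, Il17a and Defa24 in non-inflamed replicate 7, Trem3 in non-inflamed replicate 6 and Zdhhc1 in inflamed replicate 3. Markings in the same library are not independent.

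Inflamed replicate 3 accounted for 10 of them. It was the lowest of its group for Hoxb13 (0.0767 CPM, others 111 to 263), Car1 (0.46 CPM, others 222 to 667), the chemokine receptor gene Cxcr6 (4.45 CPM, others 19.6 to 41.5) and the dendritic cell gene Fscn1 (1.46 CPM, others 11.5 to 31.9). It was the highest for genes of the small intestine, namely Ccl25 (743 CPM, others 2.29 to 20.8), Gata5 (133 CPM, others 0.293 to 4.63), Nts (138 CPM, others 0.571 to 1.45) and Guca2b (584 CPM, others 13.2 to 55.1), and for Maf (704 CPM, others 20.1 to 39.3) and Zdhhc1 (2.15 CPM, others at 0).

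Non-inflamed replicate 7 accounted for 11, in each as the highest of its group. Myeloid genes were Cxcl2 (1.34 CPM, others at most 0.0985), Cybb (30.9 CPM, others 6.9 to 10.3), S100a9 (15.3 CPM, others at most 0.466), Nlrp3 (1.44 CPM, others 0.148 to 0.421) and Hdc (1.49 CPM, others 0.246 to 0.447). Pfkfb3 read 36.8 CPM (others 8.79 to 11.9). Lymphocyte genes were Foxp3 (0.257 CPM, others at most 0.0492), Il17a (0.103 CPM, others at 0), Gzmd (0.0514 CPM, others at 0) and Gzmg (0.0514 CPM, others at 0). Defa24 read 0.206 CPM, with the others at 0.

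Inflamed replicate 2 was the highest of its group for genes that fell, which were Hao2 (103 CPM, others 0.289 to 4.21), Sult1a1 (138 CPM, others 6.76 to 15), Mettl7a2 (4.34 CPM, others at most 0.527) and Cyp2c40 (0.634 CPM, others at most 0.0439). The remaining 6 were spread over other libraries. Cxcl11 was highest in inflamed replicate 6 (13 CPM, others 1.76 to 3.06), Igdcc4 in inflamed replicate 4 (2.65 CPM, others at most 0.515) and Il17a in inflamed replicate 5 (1.23 CPM, others at most 0.343). Il22 (0.866 CPM, others at most 0.0514) and Gata5 (0.466 CPM, others 0.295 to 0.32) were highest in non-inflamed replicate 4, and Trem3 (0.0492 CPM, others at 0) in replicate 6 of that group.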

How the results depend on the processing

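Of 2172 genes called in all, RLE scaling gave 2162, DESeq2 2692, no count filter 1956, the deposited normalized signal 1574, the older quasi-likelihood method 1882 and the vehicle groups without a batch term 1798. Without a batch term the count was 3399, and 3943 when inflamed replicate 3 was left out as well. With the vehicle groups alone and batch as a term, and within batch 4, it was 0 each time (1615 and 1321 at an unadjusted p under 0.05). Both of these fits compare 5 with 2 libraries, and why they called 0 genes was not tested. Leaving out 1 library at a time gave 685 (without non-inflamed replicate 6) to 3151 (without inflamed replicate 3). The share of calls that were higher was 55.7% of the 2172, 72.6% without non-inflamed replicate 6 and 50.3% without inflamed replicate 3. Without inflamed replicate 3 and the libraries over 100 CPM of the pancreatic gene Ctrb1, 1053 genes were called (73.3% higher), and without inflamed replicate 3 and non-inflamed replicate 7 together 3723. The fit with the replicate number as a block gave 6130. The numbers do not pair the samples, since same-numbered libraries had correlations of 0.02, -0.03, -0.10 and -0.32. Under the block Apoa1 changed sign (-1.66), as it did without inflamed replicate 3 and the pancreatic libraries (-2.82), where Sis did too (-2.34). The interaction gave 9 genes with DESeq2 and 0 under the other alternatives that could test it. Over 13 alternatives, the 125 named genes gave 1588 results, of which 1170 stayed on the same side of the threshold and 403 lost it. With non-inflamed replicate 6 left out, 52 of 120 called named genes kept their calls. The cause was not tested. Depth was lowest in inflamed replicate 1.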
